A study of Drosophila melanogaster with 18 samples.

Results

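Wing imaginal discs carrying wts149 clones were compared between larvae dissected on day 9 and larvae dissected on day 5, which holds the genotype fixed and lets age differ. The members are the 12 libraries labelled wts149 of the 18 in the series, and after the libraries a and b of each number were summed they are 6 of the 9 replicates, 3 per age. The wts day 9 group came from wandering larvae of the third instar of genotype ubxflp with FRT82B wts149 clones, taken on day 9. The wts day 5 group had the same genotype and stage and was taken on day 5. The control group, used here only to place values, carried FRT82B clones without the wts allele and was taken on day 5. All 3 groups shared the Ubx-FLP recombinase that makes the clones, the FRT82B chromosome, a Minute background, in which cells outside the clones grow slowly, hand dissection, and culture at 25 degrees C. The recombinase is driven by Ubx sequences, the mutant share of a disc is not given in the sources used here, and every library is a whole disc with mutant and other cells together. No control discs of day 9 were analysed here, so what age alone does cannot be told apart from what age does in wts discs. The labels do not say whether a replicate was a separate set of larvae. A p-value here therefore reflects only the spread among the samples of the 3 groups.

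The wing disc is a folded epithelial sac in the larva that gives rise to the adult wing and thorax. The pouch forms the wing blade, the hinge joins it to the body and the notum forms the back of the thorax, where myoblasts and trachea lie on the epithelium. warts (wts) encodes the kinase of the Hippo pathway that phosphorylates Yorkie and keeps it from activating growth genes, so discs without it overgrow. Larvae with overgrown discs often stay in the larval stage for longer than usual, and the steroid ecdysone, whose pulses end larval life, drives broad changes in disc gene expression when it rises before pupariation.

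The 3 wts day 9 replicates held 19297558 to 20899989 read counts, the 3 wts day 5 replicates 14201662 to 19762758 and the 3 control replicates 18063124 to 22263073. Levels are in CPM, which are read counts scaled to library size with TMM, and each set of 3 values is in the order of replicates 1, 2 and 3. A log2 fold change is wts day 9 over wts day 5 with its standard error, and a gene was called at an adjusted p under 0.05. Markers of the wing disc were present. nub, a pouch gene, had 331, 366 and 364 CPM in wts day 9 discs, against 327, 308 and 310.0 CPM in wts day 5 discs, and pnr, a notum gene, had 38.1, 29.5 and 33.8 CPM in wts day 9 discs, against 25, 28.7 and 27.7 CPM in wts day 5 discs. vg, sd, ap, wg, rn, pdm2, eyg and tup were also measured in all replicates. Some libraries stood apart from their group. In whole discs more cells of a type and more RNA per cell cannot be told apart, here and for every cell type named. wts day 9 replicate 2 held the most fat body RNA, with Fbp1 at 3.15, 75.4 and 9.73 CPM in wts day 9 discs, against 0.104, 0.211 and 0.468 CPM in wts day 5 discs, and had the lowest level of several ecdysone genes among the day 9 replicates. wts day 5 replicate 2 held larval cuticle RNA, with Lcp1 at 1.33, 0.362 and 0.815 CPM in wts day 9 discs, against 0.311, 137 and 0.208 CPM in wts day 5 discs, and wts day 9 replicate 1 was high for the mitotic phosphatase gene stg, at 2079, 564 and 695 CPM in wts day 9 discs, against 359, 1087 and 854 CPM in wts day 5 discs. None of these 3 genes was called (edgeR adjusted p = 0.0766 for Fbp1, 0.105 for Lcp1 and 0.52 for stg). Counts of calls are therefore given also without single replicates.

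Of 8585 genes tested, 467 were called higher in wts day 9 discs, which is 5.44% of them, and 249 were called lower, which is 2.90%. Rises were larger than falls. The median log2 fold change was 0.65 among genes called higher and -0.40 among genes called lower, and 166 genes were at least 2-fold higher against 49 at least 2-fold lower. The median over all tested genes was -0.015. All 3 day 9 replicates were above all 3 day 5 replicates for 18.2% of the genes and below them for 17.3%. The unadjusted p was under 0.05 for 26.8%. DESeq2 called 800 genes higher and 423 lower, and a fit of only the 2 wts groups 711 and 320. Leaving out a single replicate changed the counts. Without wts day 9 replicates 1, 2 and 3 in turn, 270, 204 and 170 genes were called higher and 162, 43 and 42 lower. Without wts day 5 replicates 1, 2 and 3 in turn, 299, 171 and 117 genes were called higher and 168, 48 and 35 lower. In all 9 fits that left out a replicate 106 genes were called higher and 25 lower, and a call that is said to have held is 1 of these 131.

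**Figure D1:**
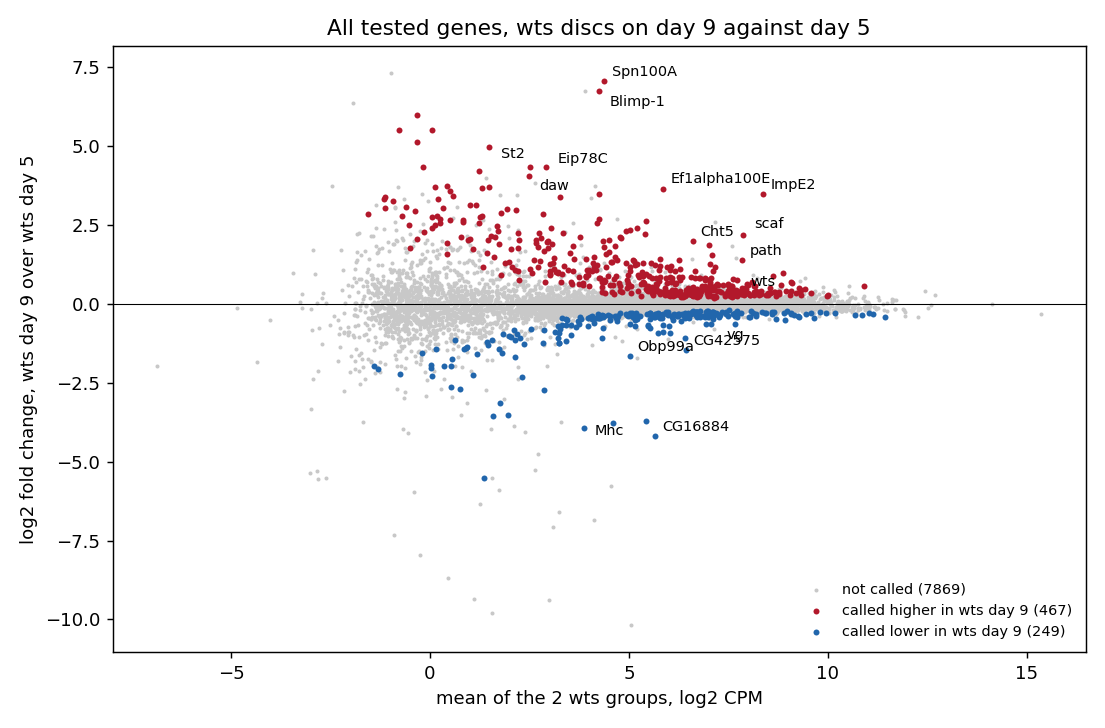
Each point is 1 of the 8585 tested genes, with the mean level in the 2 wts groups on the x axis (log2 CPM) and the log2 fold change of wts day 9 over wts day 5 on the y axis. Red points are the 467 genes called higher in wts day 9 discs and blue points the 249 called lower, and the red points reach farther from 0 than the blue ones at most levels.

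The 12 largest rises were taken from called genes that averaged 10 CPM or more at 1 of the ages and whose replicates did not overlap, and they held serpins, ecdysone-response genes and several genes of little known role. Spn100A, a serpin, had 75, 12.3 and 37.1 CPM in wts day 9 discs, against 0.466, 0.281 and 0.156 CPM in wts day 5 discs (log2 fold change 7.06 ± 1.54, edgeR adjusted p = 0.0245). Blimp-1, a zinc finger repressor that times the response to the ecdysone pulse, had 61.6, 6.26 and 44.3 CPM in wts day 9 discs, against 0.466, 0.492 and 0.104 CPM in wts day 5 discs (log2 fold change 6.74 ± 1.81, edgeR adjusted p = 0.0497). Both were lowest at day 9 in replicate 2, which was still above every wts day 5 replicate. The Spn100A call was lost in fits lacking day 9 replicate 1 or 3 or any day 5 replicate (adjusted p between 0.056 and 0.106). The Blimp-1 call was lost in fits lacking any 1 of the 6 wts replicates or control replicate 1 or 3 (adjusted p between 0.0515 and 0.166). The nuclear receptor gene Eip78C had 24.4, 3.62 and 15.6 CPM in wts day 9 discs, against 0.777, 0.702 and 0.623 CPM in wts day 5 discs (log2 fold change 4.36 ± 1.04, edgeR adjusted p = 0.033). St2, annotated as a sulfotransferase, had 15.9, 5.33 and 11.2 CPM in wts day 9 discs, against 0.881, 0.562 and 0.156 CPM in wts day 5 discs (log2 fold change 4.33 ± 0.95, edgeR adjusted p = 0.0248). Their day 9 values spread more widely than their day 5 values, and no replicate of the groups overlapped. The Eip78C and St2 calls were lost in fits lacking day 9 replicate 1 or 3 or any day 5 replicate (adjusted p between 0.0573 and 0.129). daw, which encodes Dawdle, an Activin-type ligand that signals through Baboon, had 3.89, 11.6 and 16.2 CPM in wts day 9 discs, against 0.518, 0.562 and 0.779 CPM in wts day 5 discs (log2 fold change 4.07 ± 0.80, edgeR adjusted p = 0.0183), a call that was lost in fits lacking day 9 replicate 2 or 3 or any day 5 replicate (adjusted p between 0.0526 and 0.0799). Ef1alpha100E, a second gene for the translation elongation factor eEF1A, had 102, 113 and 107 CPM in wts day 9 discs, against 12.5, 6.11 and 6.65 CPM in wts day 5 discs (log2 fold change 3.66 ± 0.57, edgeR adjusted p = 0.0072). The day 9 replicates of Ef1alpha100E lay close together, far above all day 5 replicates, and its call was lost in fits lacking day 5 replicate 3 (adjusted p = 0.0532).

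The other 6 of these 12 include ImpE2 and ImpE3, ecdysone-inducible genes of the disc surface, described with the ecdysone genes. CG32055, a gene without a described role here, had 20.4, 18.3 and 14 CPM in wts day 9 discs, against 2.33, 1.05 and 1.51 CPM in wts day 5 discs (log2 fold change 3.41 ± 0.45, edgeR adjusted p = 0.00408). CG14257 had 11.4, 11.3 and 15.1 CPM in wts day 9 discs, against 2.69, 1.9 and 0.623 CPM in wts day 5 discs (log2 fold change 2.86 ± 0.47, edgeR adjusted p = 0.00964). Glt, which encodes glutactin, a basement membrane protein, had 40.4, 26.3 and 32.1 CPM in wts day 9 discs, against 6.42, 4.35 and 4.26 CPM in wts day 5 discs (log2 fold change 2.71 ± 0.59, edgeR adjusted p = 0.0245). The serpin gene Spn43Aa had 66.9, 58 and 96.6 CPM in wts day 9 discs, against 13.4, 13.3 and 9.35 CPM in wts day 5 discs (log2 fold change 2.62 ± 0.58, edgeR adjusted p = 0.0261). All 4 were higher in each day 9 replicate than in any day 5 replicate. The CG32055 and CG14257 calls held. The Glt and Spn43Aa calls were lost in fits lacking any 1 of the 6 wts replicates (adjusted p between 0.0526 and 0.11).

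The 12 largest falls, chosen in the same way, held a pair of neighbouring genes, muscle genes and several genes of little known role. CG16884 had 8.8, 3.11 and 3.98 CPM in wts day 9 discs, against 57.3, 151 and 80.5 CPM in wts day 5 discs (log2 fold change -4.19 ± 0.45, edgeR adjusted p = 0.00163). In control discs CG16884 had 135, 182 and 121 CPM, above every day 9 replicate and overlapping day 5. CG16885, its neighbour in the RefSeq gene order, had 8.53, 5.02 and 4.94 CPM in wts day 9 discs, against 50.4, 124 and 65.4 CPM in wts day 5 discs (log2 fold change -3.69 ± 0.35, edgeR adjusted p = 0.00104). In control discs CG16885 had 113, 141 and 119 CPM, above every day 9 replicate and overlapping day 5. Both were far below every control replicate on day 9, both were highest at day 5 in replicate 2, and both calls held. Nplp4, named as a neuropeptide-like precursor, had 5.01, 2.59 and 2.25 CPM in wts day 9 discs, against 8.24, 96.8 and 30.1 CPM in wts day 5 discs (log2 fold change -3.77 ± 0.83, edgeR adjusted p = 0.0259), with day 5 values that differed widely between replicates, and its call was lost in fits lacking any day 9 replicate or day 5 replicate 2 or 3 (adjusted p between 0.0579 and 0.0987). In control discs Nplp4 had 121, 187 and 71 CPM, above every day 9 replicate and overlapping day 5. Obp99a, an odorant-binding protein gene, had 21.1, 10.3 and 16.3 CPM in wts day 9 discs, against 52.7, 50.3 and 46.7 CPM in wts day 5 discs (log2 fold change -1.65 ± 0.24, edgeR adjusted p = 0.00639). In control discs Obp99a had 14.1, 9.37 and 15.5 CPM, overlapping day 9 and below every day 5 replicate. CG42575 had 49.4, 46.3 and 43 CPM in wts day 9 discs, against 113, 133 and 136 CPM in wts day 5 discs (log2 fold change -1.46 ± 0.09, edgeR adjusted p = 0.000115). In control discs CG42575 had 104, 117 and 108 CPM, above every day 9 replicate and overlapping day 5. The 3 day 5 replicates of each lay close together, above every day 9 replicate, and both calls held. Obp99a was near the control level on day 9, whereas CG42575 was near the control level on day 5.

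nrm, an immunoglobulin-domain adhesion gene called neuromusculin, had 6.29, 5.38 and 5.27 CPM in wts day 9 discs, against 13.7, 15 and 11.2 CPM in wts day 5 discs (log2 fold change -1.23 ± 0.15, edgeR adjusted p = 0.00248). CG9008 had 55.3, 53.1 and 54.9 CPM in wts day 9 discs, against 104, 118 and 124 CPM in wts day 5 discs (log2 fold change -1.08 ± 0.17, edgeR adjusted p = 0.00708). CG14566 had 5.76, 6.42 and 4.6 CPM in wts day 9 discs, against 11.5, 13.8 and 14.5 CPM in wts day 5 discs (log2 fold change -1.25 ± 0.29, edgeR adjusted p = 0.0295). CG42326 had 3.36, 3.26 and 6.18 CPM in wts day 9 discs, against 10.5, 9.48 and 10.1 CPM in wts day 5 discs (log2 fold change -1.23 ± 0.29, edgeR adjusted p = 0.031). None of these 4 overlapped between the ages. The nrm and CG9008 calls held. The CG14566 call was lost in fits lacking any 1 of the 6 wts replicates (adjusted p between 0.0511 and 0.11). The CG42326 call was lost in fits lacking day 9 replicate 1 or 2 or any day 5 replicate (adjusted p between 0.0813 and 0.115). Mhc and bt, which also rank among the 12, are described with the muscle genes, and ppk29 with the channels.

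**Figure D2:**
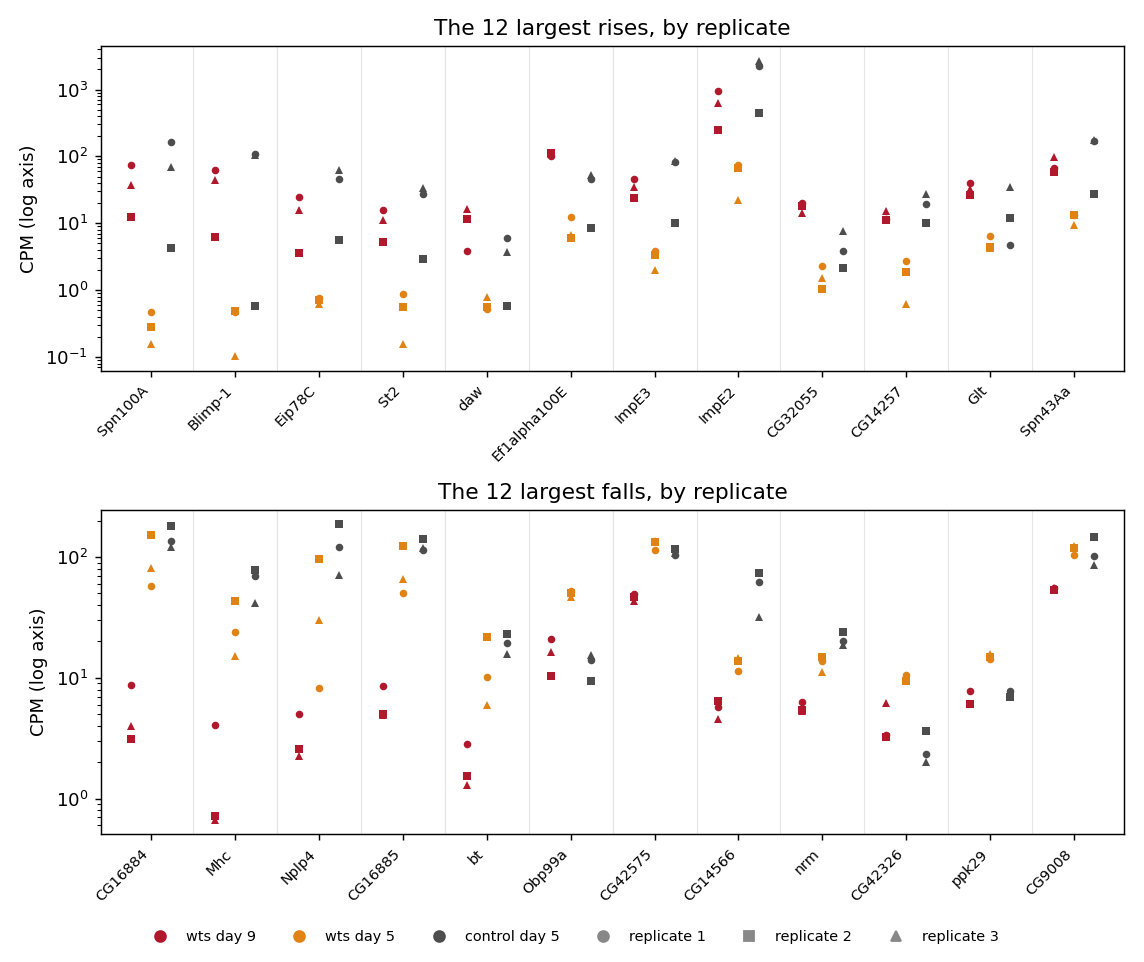
Levels in CPM on a log axis of the genes with the 12 largest rises (top) and the 12 largest falls (bottom), 1 point per replicate, with wts day 9 left, wts day 5 in the middle and control day 5 right for each gene. No wts day 9 point overlaps a wts day 5 point, because the genes were chosen so, while the control points lie near wts day 9 for some genes and near wts day 5 for others.

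**Figure D3:**
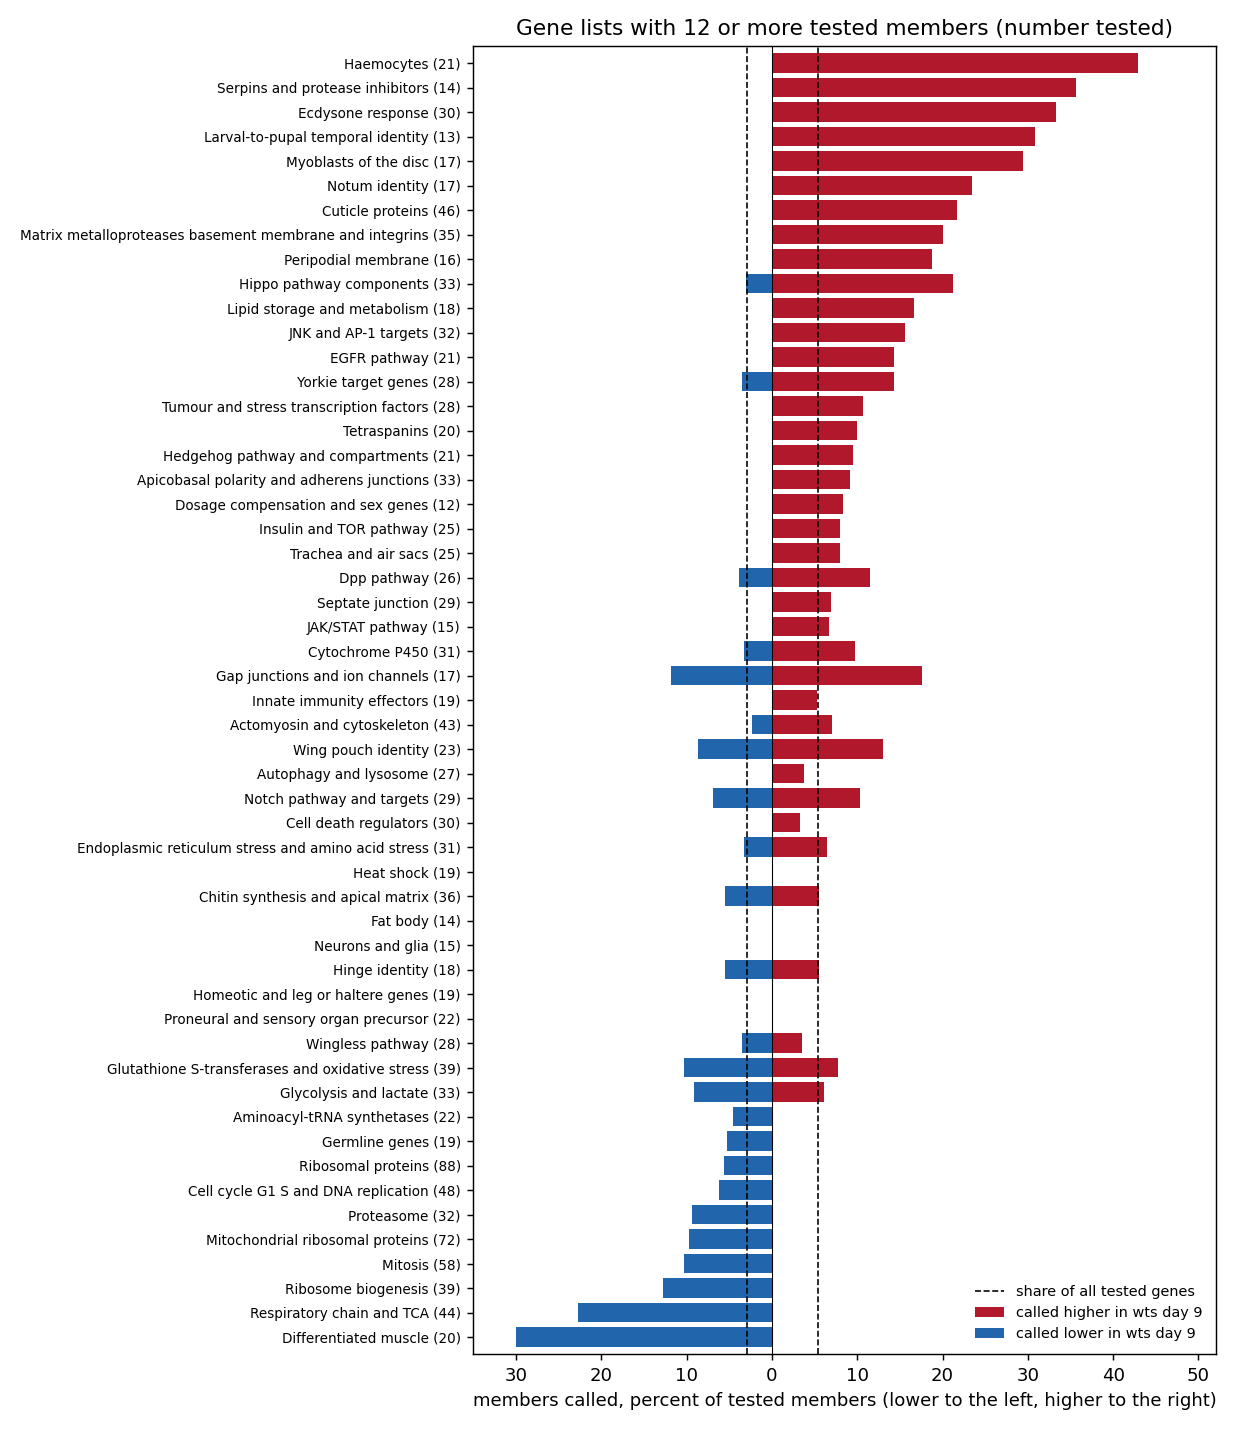
Share of the tested members called in each gene list with 12 or more tested members, in percent, with genes called higher in wts day 9 discs to the right in red and genes called lower to the left in blue. Dashed lines mark the 5.44% and 2.90% of all tested genes, the number tested stands after each list name, and the longest bars are haemocyte genes at 42.9% higher and muscle genes at 30.0% lower.

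Of 30 tested ecdysone-response genes, 10 were called higher in wts day 9 discs, which is 33.3% against 5.44% of all genes, and none was called lower. The median log2 fold change of the list was 1.06, 0.79 to 1.15 over the 20 settings, beside -0.015 over all genes. Among the transcription factor genes that ecdysone switches on early, Eip74EF had 208, 211 and 197 CPM in wts day 9 discs, against 173, 138 and 149 CPM in wts day 5 discs (log2 fold change 0.42 ± 0.09, edgeR adjusted p = 0.0264). Eip75B had 277, 211 and 256 CPM in wts day 9 discs, against 186, 121 and 126 CPM in wts day 5 discs (log2 fold change 0.78 ± 0.19, edgeR adjusted p = 0.0319). br, the broad gene, had 2455, 2209.7 and 2273 CPM in wts day 9 discs, against 1817, 1579 and 1256 CPM in wts day 5 discs (log2 fold change 0.58 ± 0.13, edgeR adjusted p = 0.0285). In control discs br had 2037, 2033 and 2476 CPM, overlapping day 9 and above every day 5 replicate. These rises were under 2-fold and the ages did not overlap. Eip93F, a factor of the pupal to adult transition, was low at both ages with 1.55, 2.17 and 1.73 CPM in wts day 9 discs, against 0.414, 0.211 and 0.156 CPM in wts day 5 discs (log2 fold change 2.76 ± 0.48, edgeR adjusted p = 0.0114). The Imp genes are named as ecdysone-inducible genes of imaginal discs. ImpE2 had 949, 246 and 627 CPM in wts day 9 discs, against 73.2, 67.4 and 22.3 CPM in wts day 5 discs (log2 fold change 3.49 ± 0.73, edgeR adjusted p = 0.0215). In control discs ImpE2 had 2218, 452 and 2696 CPM, overlapping day 9 and above every day 5 replicate. ImpE3 had 45.8, 23.5 and 34.8 CPM in wts day 9 discs, against 3.89, 3.37 and 1.97 CPM in wts day 5 discs (log2 fold change 3.50 ± 0.72, edgeR adjusted p = 0.0204). In control discs ImpE3 had 82.9, 9.95 and 86.1 CPM, overlapping day 9 and above every day 5 replicate. ImpE2 and ImpE3 on day 9 lay between wts day 5 discs and control replicates 1 and 3, and were lowest at day 9 in replicate 2. ImpL2, a secreted protein that binds insulin-like peptides, had 134, 176 and 286 CPM in wts day 9 discs, against 86.9, 107 and 71.6 CPM in wts day 5 discs (log2 fold change 1.17 ± 0.25, edgeR adjusted p = 0.0235). ImpL3, the lactate dehydrogenase gene, had 10.6, 60.8 and 81.3 CPM in wts day 9 discs, against 9.43, 14.1 and 7.07 CPM in wts day 5 discs (log2 fold change 2.33 ± 0.60, edgeR adjusted p = 0.041), with day 9 replicate 1 inside the day 5 range.

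Control replicate 2 was lower than the other control replicates for many of these genes, with Blimp-1 at 110.3, 0.578 and 105 CPM and Eip78C at 46.5, 5.64 and 62.4 CPM in control discs. The nuclear receptor gene Hr4 was not called with a wide spread, at 62.4, 5.49 and 31.2 CPM in wts day 9 discs, against 2.49, 2.11 and 2.7 CPM in wts day 5 discs (edgeR adjusted p = 0.107). In control discs Hr4 had 188, 2.62 and 157 CPM, overlapping both ages. DESeq2 called 17 ecdysone-response genes higher, limma-voom 6 and the fit of only the 2 wts groups 16. The count of ecdysone genes called higher fell whenever a wts replicate was left out. It was 10 in the full fit, 3, 4 and 1 when wts day 9 replicates 1, 2 and 3 were left out in turn, and 4, 0 and 0 when wts day 5 replicates 1, 2 and 3 were left out in turn. None of the 10 kept its call in all 9 fits that left out a replicate. EcR and usp, which encode the ecdysone receptor and its partner, had log2 fold changes of -0.17 and 0.04 and were not called (edgeR adjusted p = 0.407 and 0.82). Cyp18a1, a cytochrome P450 that inactivates ecdysone, had 12.4, 7.25 and 14.1 CPM in wts day 9 discs, against 3.42, 2.74 and 1.82 CPM in wts day 5 discs (log2 fold change 2.08 ± 0.48, edgeR adjusted p = 0.029), a call that was lost in fits lacking any 1 of the 6 wts replicates (adjusted p between 0.05 and 0.119).

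Genes of the passage from larval to pupal and adult identity were compared as a list of 13, of which 4 were called higher (30.8% against 5.44%) and none lower. Kr-h1, the gene that answers juvenile hormone, had 71.8, 82.5 and 78.8 CPM in wts day 9 discs, against 58.9, 56.5 and 57.9 CPM in wts day 5 discs (log2 fold change 0.43 ± 0.07, edgeR adjusted p = 0.0077), a rise that held. br, Eip93F and Eip75B were the other 3. chinmo, a larval identity gene, had 347, 376 and 288 CPM in wts day 9 discs, against 355, 330.2 and 430.5 CPM in wts day 5 discs and was not called (log2 fold change -0.14, edgeR adjusted p = 0.643). In control discs chinmo had 112, 126 and 76.1 CPM, below every wts replicate. The RNA-binding protein genes Imp and Syp, which mark early and late progenitors in other tissues, had log2 fold changes of -0.24 and 0.20 (edgeR adjusted p = 0.236 and 0.227). The number of members called higher was 4 in the full fit, 2, 2 and 2 when wts day 9 replicates 1, 2 and 3 were left out in turn, and 4, 1 and 1 when wts day 5 replicates 1, 2 and 3 were left out in turn.

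Cuticle protein genes encode the chitin-binding proteins of the coat of the larva, pupa and adult. Of 46 tested, 10 were called higher (21.7% against 5.44%) and none lower, with a median log2 fold change of 0.44. That median was 0.10 to 0.86 over the 20 settings, and 25 of 46 log2 fold changes were above 0 and 21 below. Cpr64Ac had 3.09, 6.94 and 3.45 CPM in wts day 9 discs, against 0.104, 0.421 and 0.208 CPM in wts day 5 discs (log2 fold change 4.23 ± 0.59, edgeR adjusted p = 0.00474). Cpr78E had 8.11, 7.5 and 7.19 CPM in wts day 9 discs, against 1.92, 1.69 and 1.2 CPM in wts day 5 discs (log2 fold change 2.25 ± 0.35, edgeR adjusted p = 0.00708). Cpr66D had 24.6, 33.5 and 31.1 CPM in wts day 9 discs, against 16.1, 9.41 and 14.2 CPM in wts day 5 discs (log2 fold change 1.16 ± 0.18, edgeR adjusted p = 0.00718). These 3 calls held, and each gene was higher in every day 9 replicate than in any day 5 replicate. Cpr12A had 74.6, 61.6 and 82.5 CPM in wts day 9 discs, against 39.8, 33.8 and 29 CPM in wts day 5 discs (log2 fold change 1.09 ± 0.19, edgeR adjusted p = 0.0109). Cpr65Ec had 22, 20.5 and 23.7 CPM in wts day 9 discs, against 6.58, 4.56 and 4.05 CPM in wts day 5 discs (log2 fold change 2.12 ± 0.42, edgeR adjusted p = 0.0181). Cpr31A, Cpr51A, Cpr100A, TwdlE and TwdlT were also called higher. Of these, Cpr51A had 79, 89.4 and 65.6 CPM in wts day 9 discs, against 41.5, 38.5 and 52.4 CPM in wts day 5 discs. In control discs Cpr51A had 23.9, 19.4 and 16.2 CPM, below every wts replicate. TwdlT rested on 2 counts over the wts day 5 replicates, so no fold is given for it. The larval cuticle genes Lcp1 and Lcp4 were not among them, with Lcp4 at 0.213, 0.104 and 0.527 CPM in wts day 9 discs, against 0.259, 104 and 0.104 CPM in wts day 5 discs and the high day 5 value in replicate 2 alone. The count called higher was 10 in the full fit, 8, 5 and 5 when wts day 9 replicates 1, 2 and 3 were left out in turn, and 7, 6 and 4 when wts day 5 replicates 1, 2 and 3 were left out in turn.

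Of 36 tested chitin and apical matrix genes, 2 were called higher (5.56% against 5.44%) and 2 lower (5.56% against 2.90%). The counts were 1 to 3 higher and 0 to 2 lower without 1 wts replicate, 1 and 1 without control replicate 1, 7 and 4 without control replicate 2, and 7 and 3 without control replicate 3. For the same genes DESeq2 called 12 higher and 5 lower, limma-voom 2 higher and 2 lower, and the fit of only the 2 wts groups 10 higher and 4 lower. Cht5, a chitinase of the moult, had 143, 167 and 159.8 CPM in wts day 9 discs, against 49, 32.4 and 37 CPM in wts day 5 discs (log2 fold change 1.99 ± 0.20, edgeR adjusted p = 0.00132), a rise that held. In control discs Cht5 had 80.9, 46.9 and 68.2 CPM, below every day 9 replicate and overlapping day 5. tyn, a zona pellucida domain gene of the apical matrix, had 59.7, 37 and 39.7 CPM in wts day 9 discs, against 80.5, 78.6 and 98.2 CPM in wts day 5 discs (log2 fold change -0.92 ± 0.18, edgeR adjusted p = 0.0185), a call that was lost in fits lacking day 9 replicate 2 or 3 or day 5 replicate 3 (adjusted p between 0.0632 and 0.0825). CG5210, a member of the imaginal disc growth factor family of chitinase-like proteins, had 45.8, 37.5 and 38 CPM in wts day 9 discs, against 67.2, 80.2 and 79.4 CPM in wts day 5 discs (log2 fold change -0.90 ± 0.22, edgeR adjusted p = 0.0383), a call that was lost in fits lacking any 1 of the 6 wts replicates or control replicate 1 (adjusted p between 0.057 and 0.131). Osi2, of the Osiris family of insect genes, had 19, 25.5 and 22 CPM in wts day 9 discs, against 9.22, 7.8 and 7.69 CPM in wts day 5 discs (log2 fold change 1.43 ± 0.14, edgeR adjusted p = 0.0012), which held. The receptor gene for the tanning hormone bursicon, rk, chosen after its values were seen, had 6.51, 4.14 and 5.7 CPM in wts day 9 discs, against 1.04, 1.26 and 0.675 CPM in wts day 5 discs (log2 fold change 2.46 ± 0.36, edgeR adjusted p = 0.00618), and its call held. In control discs rk had 4.5, 2.13 and 3.95 CPM, overlapping day 9 and above every day 5 replicate. Of 14 tested serpin genes 5 were called higher (35.7% against 5.44%) and none lower. Besides Spn100A and Spn43Aa these were Spn55B, Spn77Ba and Spn88Ea. Spn55B had 42.9, 35.5 and 38.7 CPM in wts day 9 discs, against 24.8, 21.3 and 22.2 CPM in wts day 5 discs (log2 fold change 0.77 ± 0.13, edgeR adjusted p = 0.0113). Spn77Ba had 285, 244 and 244 CPM in wts day 9 discs, against 193, 182 and 205 CPM in wts day 5 discs (log2 fold change 0.42 ± 0.08, edgeR adjusted p = 0.0158). Spn88Ea had 201, 153 and 153 CPM in wts day 9 discs, against 129, 132 and 123 CPM in wts day 5 discs (log2 fold change 0.40 ± 0.10, edgeR adjusted p = 0.0363). The number called higher was 5 in the full fit, 3, 4 and 2 when wts day 9 replicates 1, 2 and 3 were left out in turn, and 2, 1 and 1 when wts day 5 replicates 1, 2 and 3 were left out in turn.

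**Figure D4:**
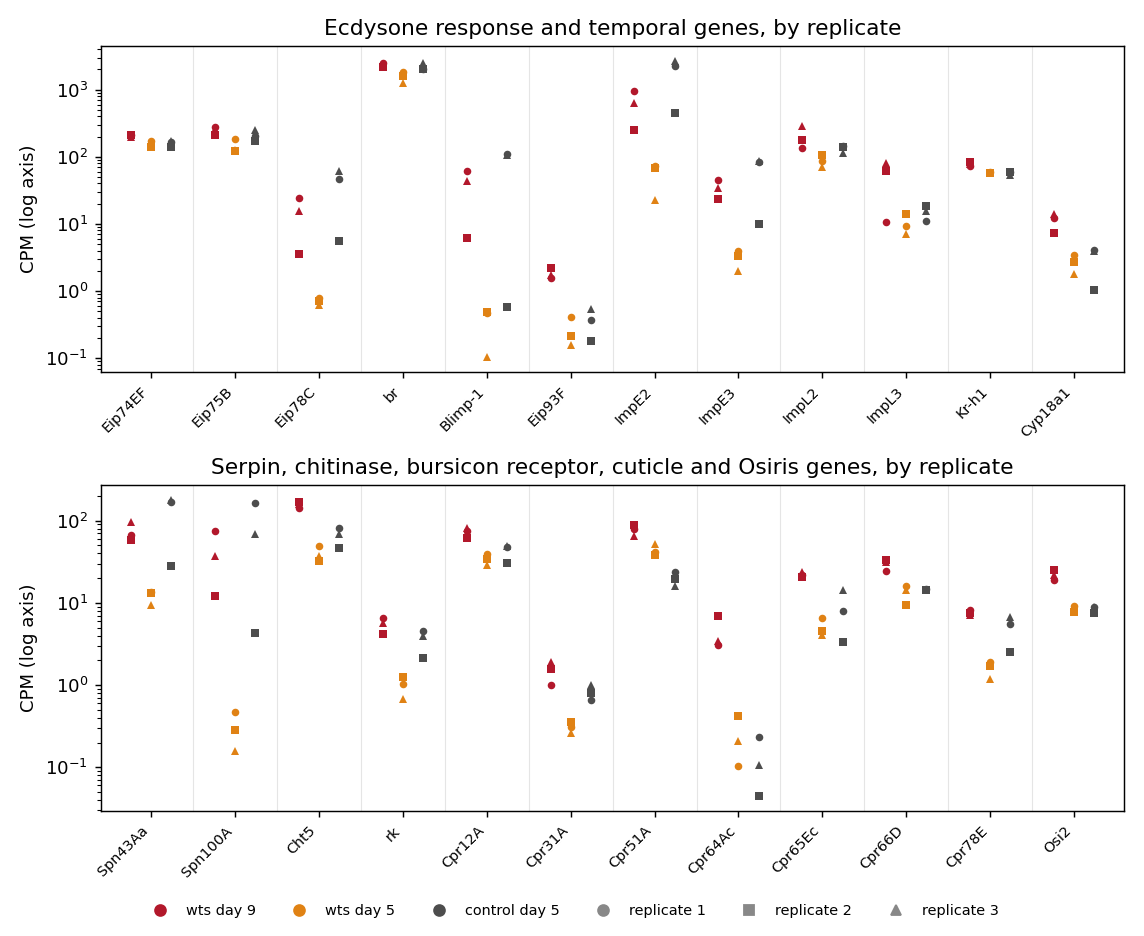
Levels in CPM on a log axis of ecdysone-response and temporal genes (top) and of serpin, chitinase, bursicon receptor, cuticle and Osiris genes (bottom), 1 point per replicate, with wts day 9 left, wts day 5 in the middle and control day 5 right. Blimp-1, Eip78C, ImpE2, ImpE3 and Spn100A show the wide spread of the day 9 replicates and the low control replicate 2, whereas Cht5, Kr-h1 and Osi2 show 3 close day 9 points above the day 5 points.

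wts itself was higher on day 9. It had 274, 256 and 277 CPM in wts day 9 discs, against 213, 208 and 185 CPM in wts day 5 discs (log2 fold change 0.41 ± 0.07, edgeR adjusted p = 0.0105), so its RNA was above the control at both ages, and its call held in every one of the 20 settings. In control discs wts had 99.8, 106 and 95.6 CPM, below every wts replicate. The sources used here do not give the lesion of wts149, and this level does not check the genotype. Of 33 tested Hippo pathway genes, 7 were called higher (21.2% against 5.44%) and 1 lower (3.03% against 2.90%), with a median log2 fold change of 0.12. Besides wts, Rassf, which opposes Hippo kinase activity, had 119.9, 132 and 129.6 CPM in wts day 9 discs, against 101, 92.1 and 94.8 CPM in wts day 5 discs (log2 fold change 0.41 ± 0.07, edgeR adjusted p = 0.0114). kibra, an upstream activator that Yorkie also induces, had 321, 344 and 341 CPM in wts day 9 discs, against 285, 271 and 277 CPM in wts day 5 discs (log2 fold change 0.27 ± 0.06, edgeR adjusted p = 0.026). In control discs kibra had 90.5, 90.9 and 83 CPM, below every wts replicate. Tgi, a repressor that competes with Yorkie for Scalloped, had 84.2, 78.9 and 77.4 CPM in wts day 9 discs, against 68, 62.3 and 60.8 CPM in wts day 5 discs (log2 fold change 0.33 ± 0.08, edgeR adjusted p = 0.0292). In control discs Tgi had 116, 98.1 and 102 CPM, above every wts replicate. crb, Sik3 and lft also rose, by log2 0.35, 0.27 and 0.28. kibra was already more than 2-fold above the control level on day 5, and its rise with age was small beside that. vg, the wing selector gene whose product binds Scalloped, had 144, 130.1 and 123 CPM in wts day 9 discs, against 176, 183 and 173 CPM in wts day 5 discs (log2 fold change -0.42 ± 0.09, edgeR adjusted p = 0.0196). In control discs vg had 254, 265 and 216 CPM, above every wts replicate. vg was the 1 gene of the list that fell. yki, which encodes Yorkie, and ex, the feedback gene expanded, were not called, with log2 fold changes of 0.23 and 0.21 (edgeR adjusted p = 0.101 and 0.134). The number of Hippo genes called higher was 7 in the full fit, 3, 1 and 1 when wts day 9 replicates 1, 2 and 3 were left out in turn, and 4, 1 and 1 when wts day 5 replicates 1, 2 and 3 were left out in turn; it was 4 without control replicate 1. The vg call was lost in fits lacking day 9 replicate 2 or 3 or day 5 replicate 2 or 3 (adjusted p between 0.0678 and 0.08).

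Among 28 tested Yorkie target genes 4 were called higher (14.3% against 5.44%) and 1, vg, lower. The rises were InR, mys, kibra and crb. InR, the insulin receptor gene, had 189.6, 207 and 195 CPM in wts day 9 discs, against 140.1, 123 and 125 CPM in wts day 5 discs (log2 fold change 0.61 ± 0.06, edgeR adjusted p = 0.00163). In control discs InR had 168, 169.7 and 163 CPM, between the 2 ages. mys, the beta integrin gene, had 466, 454 and 452 CPM in wts day 9 discs, against 381, 338 and 343 CPM in wts day 5 discs (log2 fold change 0.37 ± 0.06, edgeR adjusted p = 0.0114). The InR and mys calls held, and InR on day 9 was also above all 3 control replicates. Well-known growth targets such as Diap1, CycE and dm did not pass the test. The cell death inhibitor Diap1 had 474, 504 and 504 CPM in wts day 9 discs, against 439, 406 and 435 CPM in wts day 5 discs (edgeR adjusted p = 0.0782). In control discs Diap1 had 342, 303 and 324 CPM, below every wts replicate. CycE had 155, 134 and 142 CPM in wts day 9 discs, against 124, 123 and 135 CPM in wts day 5 discs (edgeR adjusted p = 0.122). In control discs CycE had 92.7, 94.6 and 97.5 CPM, below every wts replicate. dm, the Myc gene, had 291, 376 and 339.6 CPM in wts day 9 discs, against 289.6, 266 and 290.2 CPM in wts day 5 discs (edgeR adjusted p = 0.118). In control discs dm had 173, 192 and 175 CPM, below every wts replicate. All 3 were above the control at both ages in these libraries. The number of targets called higher was 4 in the full fit, 4, 2 and 2 when wts day 9 replicates 1, 2 and 3 were left out in turn, and 2, 2 and 2 when wts day 5 replicates 1, 2 and 3 were left out in turn. Ilp8, whose relaxin-like product from damaged or overgrown discs delays pupariation, had 76, 56 and 56.4 CPM in wts day 9 discs, against 51.4, 45.1 and 50.0 CPM in wts day 5 discs. In control discs Ilp8 had 0.281, 1.87 and 0.32 CPM, below every wts replicate. It was far above the control at both ages, and between the ages it was not called (log2 fold change 0.36 ± 0.32, edgeR adjusted p = 0.501). CG43394, chosen after its values were seen, was at 491, 605 and 551 CPM in wts day 9 discs, against 383, 336 and 369.7 CPM in wts day 5 discs (log2 fold change 0.60 ± 0.09, edgeR adjusted p = 0.0059), and its call held. In control discs CG43394 had 26.7, 28.8 and 26.2 CPM, below every wts replicate.

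JNK signalling, a stress kinase pathway that acts through AP-1, was compared with a list of 32 tested genes, of which 5 were called higher (15.6% against 5.44%) and none lower. scaf, a secreted serine protease homologue that JNK induces in the disc, had 352, 388 and 414 CPM in wts day 9 discs, against 111, 82 and 61.8 CPM in wts day 5 discs (log2 fold change 2.18 ± 0.18, edgeR adjusted p = 0.000506). In control discs scaf had 81.7, 97.9 and 87.3 CPM, far below every day 9 replicate and overlapping day 5. Timp, the inhibitor of matrix metalloproteases, had 11.7, 13 and 12.6 CPM in wts day 9 discs, against 7.2, 5.76 and 5.82 CPM in wts day 5 discs (log2 fold change 0.99 ± 0.13, edgeR adjusted p = 0.0043). In control discs Timp had 7.03, 6.66 and 7.41 CPM, below every day 9 replicate and overlapping day 5. Both calls held. Gadd45 had 27.4, 16.4 and 21.6 CPM in wts day 9 discs, against 12.3, 9.2 and 9.4 CPM in wts day 5 discs (log2 fold change 1.08 ± 0.19, edgeR adjusted p = 0.0114). In control discs Gadd45 had 23.2, 24.8 and 19.9 CPM, overlapping day 9 and above every day 5 replicate. Pvf1, a ligand of the PVR receptor, had 13, 8.07 and 10.5 CPM in wts day 9 discs, against 5.13, 5.69 and 5.77 CPM in wts day 5 discs (log2 fold change 0.93 ± 0.19, edgeR adjusted p = 0.0215). hid, a trigger of apoptosis, had 143, 169 and 162 CPM in wts day 9 discs, against 112, 93.8 and 102 CPM in wts day 5 discs (log2 fold change 0.62 ± 0.15, edgeR adjusted p = 0.0309). The Gadd45 call was lost in fits lacking day 5 replicate 2 or 3 (adjusted p between 0.0508 and 0.066). The Pvf1 call was lost in fits lacking day 9 replicate 1 or 3 or any day 5 replicate (adjusted p between 0.0602 and 0.0786). The hid call was lost in fits lacking day 9 replicate 2 or 3 or any day 5 replicate (adjusted p between 0.0525 and 0.11). The feedback phosphatase gene puc had 62, 71.2 and 64.4 CPM in wts day 9 discs, against 54.6, 51.3 and 53.2 CPM in wts day 5 discs and was not called (edgeR adjusted p = 0.529). In control discs puc had 61.9, 119 and 42.4 CPM, overlapping both ages. Mmp1, which digests basement membrane, had 205, 186 and 185 CPM in wts day 9 discs, against 157, 124 and 129 CPM in wts day 5 discs (edgeR adjusted p = 0.0605). In control discs Mmp1 had 115, 169 and 123 CPM, below every day 9 replicate and overlapping day 5. The AP-1 gene kay had 193, 196 and 216 CPM in wts day 9 discs, against 147, 126 and 135 CPM in wts day 5 discs (edgeR adjusted p = 0.163). In control discs kay had 156, 259 and 111 CPM, overlapping both ages. The 3 wts day 9 values were above the 3 wts day 5 values for puc, Mmp1 and kay, though none passed the threshold, and over all genes that order was found in 18.2%. The count of JNK genes called higher was 5 in the full fit and 12 in the fit of only the 2 wts groups. Without wts day 9 replicates 1, 2 and 3 in turn it was 5, 4 and 3. Without those of wts day 5 it was 4, 2 and 2. It was 10 without control replicate 2. In a list of 28 tumour and stress transcription factors, the 3 called higher (10.7% against 5.44%) were the ecdysone genes br, Eip93F and Eip74EF, and Ets21C and Atf3 had log2 fold changes of 0.43 and -0.10 (edgeR adjusted p = 0.662 and 0.782).

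In the JAK/STAT list 1 of 15 tested genes, Socs44A, was called higher, a share of 6.67% against 5.44%, and its call was lost in fits lacking any day 9 replicate, day 5 replicate 2 or 3 or any control replicate (adjusted p between 0.0545 and 0.146). The cytokine genes os (upd1), upd2 and upd3 were not called. upd3 had 4.43, 4.5 and 4.12 CPM in wts day 9 discs, against 5.85, 4.78 and 5.77 CPM in wts day 5 discs (edgeR adjusted p = 0.269). In control discs upd3 had 2.53, 2.27 and 2.03 CPM, below every wts replicate. upd2 had 1.33, 1.4 and 1.15 CPM in wts day 9 discs, against 1.76, 1.69 and 1.51 CPM in wts day 5 discs (edgeR adjusted p = 0.629). os had 17.2, 20.2 and 21.7 CPM in wts day 9 discs, against 23.9, 21.1 and 23.6 CPM in wts day 5 discs (edgeR adjusted p = 0.209). Of 30 tested cell death regulators hid alone was called (3.33% against 5.44%), and rpr, another trigger of apoptosis, had 8.8, 11.1 and 9.97 CPM in wts day 9 discs, against 12.3, 12.7 and 17.8 CPM in wts day 5 discs (edgeR adjusted p = 0.187). In control discs rpr had 17.2, 31.5 and 20.1 CPM, above every day 9 replicate and overlapping day 5. Of 19 immunity effectors 1 was called (5.26% against 5.44%). It was PGRP-LC, the receptor of the Imd pathway, with 14.2, 12.9 and 12.3 CPM in wts day 9 discs, against 2.9, 4.42 and 3.22 CPM in wts day 5 discs (log2 fold change 1.91 ± 0.23, edgeR adjusted p = 0.00245), and its call held. In control discs PGRP-LC had 4.59, 3.15 and 5.33 CPM, below every day 9 replicate and overlapping day 5.

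Matrix genes that were called were all higher. Of 35 tested genes for matrix metalloproteases, basement membrane proteins and integrins, 7 were called higher (20.0% against 5.44%) and none lower, with 26 of 35 log2 fold changes above 0. The integrin alpha subunit gene mew had 316, 326 and 313 CPM in wts day 9 discs, against 247, 249.7 and 236 CPM in wts day 5 discs (log2 fold change 0.38 ± 0.05, edgeR adjusted p = 0.00474), and with mys, its beta partner, and Timp its call held. In control discs mew had 244, 244 and 247 CPM, below every day 9 replicate and overlapping day 5. LanB2, the laminin gamma chain, had 431, 402 and 413 CPM in wts day 9 discs, against 346, 347 and 291 CPM in wts day 5 discs (log2 fold change 0.34 ± 0.08, edgeR adjusted p = 0.0317). In control discs LanB2 had 331, 330.4 and 361 CPM, below every day 9 replicate and overlapping day 5. Tig, an integrin ligand, had 15.4, 16.4 and 13.6 CPM in wts day 9 discs, against 8.13, 8.92 and 4.42 CPM in wts day 5 discs (log2 fold change 1.08 ± 0.23, edgeR adjusted p = 0.0231). Mp, the multiplexin collagen gene, had 58.9, 46 and 46.9 CPM in wts day 9 discs, against 34.5, 35.3 and 24.4 CPM in wts day 5 discs (log2 fold change 0.69 ± 0.15, edgeR adjusted p = 0.0221). Pxn, peroxidasin, had 41.9, 28.6 and 27.1 CPM in wts day 9 discs, against 8.76, 8.64 and 6.91 CPM in wts day 5 discs (log2 fold change 2.01 ± 0.36, edgeR adjusted p = 0.0127), and it is also a haemocyte gene. In control discs Pxn had 9.27, 17.7 and 29.6 CPM, overlapping day 9 and above every day 5 replicate. The LanB2 call was lost in fits lacking any 1 of the 6 wts replicates (adjusted p between 0.0506 and 0.0906). The Tig call was lost in fits lacking any day 9 replicate (adjusted p between 0.0597 and 0.0778). The Mp call was lost in fits lacking day 9 replicate 1 or 3 or day 5 replicate 3 (adjusted p between 0.0577 and 0.0641). Mmp2 had 52.9, 35.2 and 49 CPM in wts day 9 discs, against 30.6, 14.5 and 12.6 CPM in wts day 5 discs and was not called (edgeR adjusted p = 0.0692). In control discs Mmp2 had 56.2, 25.1 and 54.9 CPM, overlapping both ages. The number called higher was 7 in the full fit, 4, 5 and 4 when wts day 9 replicates 1, 2 and 3 were left out in turn, and 7, 6 and 4 when wts day 5 replicates 1, 2 and 3 were left out in turn. Glt, among the largest rises, and Tsp, which encodes thrombospondin, a partner of integrins at tendons, are matrix genes outside the list. Tsp, chosen after its values were seen, had 209, 169 and 184 CPM in wts day 9 discs, against 103, 82.3 and 86.5 CPM in wts day 5 discs (log2 fold change 1.05 ± 0.13, edgeR adjusted p = 0.00254), and its call held. In control discs Tsp had 129, 102 and 137 CPM, below every day 9 replicate and overlapping day 5.

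Junction and cytoskeleton genes were compared as 3 lists. In the septate junction list 2 of 29 rose (6.9% against 5.44%), Lac by log2 0.28 and nrv1 by 0.24, and in the polarity and adherens junction list 3 of 33 rose (9.09% against 5.44%), crb, Magi by log2 0.28 and CadN by 0.67. Of 43 actomyosin and cytoskeleton genes 3 were called higher (6.98% against 5.44%) and 1 lower (2.33% against 2.90%). betaTub60D, a tubulin gene of late disc and muscle development, had 236, 155 and 215 CPM in wts day 9 discs, against 66.7, 60.5 and 40.5 CPM in wts day 5 discs (log2 fold change 1.86 ± 0.25, edgeR adjusted p = 0.0045). In control discs betaTub60D had 336, 185 and 282 CPM, overlapping day 9 and above every day 5 replicate. The betaTub60D call held. The formin gene DAAM, chosen after its values were seen, had 204, 159.5 and 195 CPM in wts day 9 discs, against 92.2, 73.9 and 64.2 CPM in wts day 5 discs (log2 fold change 1.28 ± 0.17, edgeR adjusted p = 0.00404). In control discs DAAM had 73.3, 51 and 72.1 CPM, below every day 9 replicate and overlapping day 5. ena rose by log2 0.31, and Tm2, a muscle tropomyosin, fell with the muscle genes. The Lac and ena calls were lost in fits lacking day 9 replicate 1 or 3 or day 5 replicate 2 or 3 (adjusted p between 0.0526 and 0.0915). The nrv1 call was lost in fits lacking any 1 of the 6 wts replicates (adjusted p between 0.0973 and 0.141). The Magi call was lost in fits lacking any day 9 replicate or day 5 replicate 2 or 3 (adjusted p between 0.0584 and 0.0967). The CadN call was lost in fits lacking day 9 replicate 1 or 2 or day 5 replicate 1 or 3 (adjusted p between 0.0742 and 0.114).

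Patterning genes changed in both directions. In the wing pouch list 3 of 23 tested genes were called higher (13% against 5.44%) and 2 lower (8.7% against 2.90%). kn, the collier gene that Hedgehog switches on in the centre of the pouch, had 43.7, 38.4 and 47.3 CPM in wts day 9 discs, against 17.4, 17.9 and 17.6 CPM in wts day 5 discs (log2 fold change 1.29 ± 0.16, edgeR adjusted p = 0.00315). In control discs kn had 43.7, 27 and 39.5 CPM, overlapping day 9 and above every day 5 replicate. dve, a homeobox gene of the pouch, had 277, 261 and 265 CPM in wts day 9 discs, against 193, 208 and 169 CPM in wts day 5 discs (log2 fold change 0.49 ± 0.09, edgeR adjusted p = 0.0109). In control discs dve had 133, 119 and 115 CPM, below every wts replicate. Both calls held, and kn on day 9 reached the control range. bs, blistered, which marks the intervein regions and also tracheal cells, had 142, 137 and 140.4 CPM in wts day 9 discs, against 87.2, 82 and 68.3 CPM in wts day 5 discs (log2 fold change 0.82 ± 0.19, edgeR adjusted p = 0.0314), a call that was lost in fits lacking any 1 of the 6 wts replicates (adjusted p between 0.0591 and 0.125). In control discs bs had 75.4, 59.7 and 114 CPM, below every day 9 replicate and overlapping day 5. vg fell, and bi, optomotor-blind, a Dpp target of the central pouch, had 78.9, 94.1 and 95 CPM in wts day 9 discs, against 122, 127 and 109.7 CPM in wts day 5 discs (log2 fold change -0.42 ± 0.09, edgeR adjusted p = 0.0244), a call that was lost in fits lacking any 1 of the 6 wts replicates (adjusted p between 0.059 and 0.0998). In control discs bi had 257, 261 and 227 CPM, above every wts replicate. vg and bi were already below the control on day 5 and were lower still on day 9. nub, rn, sd and ap were not called. In the notum list 4 of 17 were called higher (23.5% against 5.44%) and none lower. eyg had 53.5, 46.4 and 51.2 CPM in wts day 9 discs, against 37.3, 37.4 and 34.7 CPM in wts day 5 discs (log2 fold change 0.47 ± 0.08, edgeR adjusted p = 0.00935), which held. Its neighbour and paralogue toe had 48.2, 52.5 and 53.2 CPM in wts day 9 discs, against 40.0, 25.8 and 30.1 CPM in wts day 5 discs (log2 fold change 0.68 ± 0.16, edgeR adjusted p = 0.0309). sr, the tendon cell gene stripe, had 23.9, 28.2 and 25.2 CPM in wts day 9 discs, against 13.7, 9.34 and 9.82 CPM in wts day 5 discs (log2 fold change 1.23 ± 0.24, edgeR adjusted p = 0.0185). ush, the partner of Pannier, had 88.6, 87.3 and 89.7 CPM in wts day 9 discs, against 68.4, 72.6 and 60.2 CPM in wts day 5 discs (log2 fold change 0.40 ± 0.09, edgeR adjusted p = 0.0307). The toe call was lost in fits lacking any day 9 replicate or day 5 replicate 2 or 3 (adjusted p between 0.0584 and 0.116). The sr call was lost in fits lacking day 9 replicate 2 or 3 or day 5 replicate 2 or 3 (adjusted p between 0.0577 and 0.0836). The ush call was lost in fits lacking any 1 of the 6 wts replicates (adjusted p between 0.0572 and 0.119). In the hinge list 1 of 18 rose (5.56% against 5.44%) and 1 fell (5.56% against 2.90%). dpn, a bHLH repressor gene, had 2.77, 3.16 and 2.3 CPM in wts day 9 discs, against 5.23, 6.67 and 6.39 CPM in wts day 5 discs (log2 fold change -1.15 ± 0.18, edgeR adjusted p = 0.00707), which held. In control discs dpn had 9.04, 8.93 and 8.37 CPM, above every wts replicate. zfh1 had 40.7, 31 and 36.2 CPM in wts day 9 discs, against 27.4, 26.5 and 22.8 CPM in wts day 5 discs (log2 fold change 0.50 ± 0.11, edgeR adjusted p = 0.0279), which was lost in fits lacking day 9 replicate 1 or 3 or day 5 replicate 2 or 3 (adjusted p between 0.0651 and 0.0973). In control discs zfh1 had 45.8, 41.8 and 44.7 CPM, above every wts replicate. None of the 19 homeotic, leg or haltere genes tested was called by edgeR, and Ubx had 19.1, 13.4 and 8.82 CPM in wts day 9 discs, against 11.1, 7.09 and 17.9 CPM in wts day 5 discs. In control discs Ubx had 70.8, 18.3 and 54.2 CPM, overlapping day 9 and above every day 5 replicate. Across these homeotic genes the unadjusted p was under 0.05 for 7 of 19, beside 26.8% of all genes. DESeq2 called 4 higher and 1 lower, limma-voom 1 higher, and the fit of only the 2 wts groups 3 higher.

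Signalling pathways were described by role. For Dpp, 3 of 26 tested genes were higher (11.5% against 5.44%) and 1, bi, lower (3.85% against 2.90%). cv-2, a secreted protein that binds BMP ligands, had 49.5, 53.9 and 65.9 CPM in wts day 9 discs, against 30.7, 29.1 and 27.7 CPM in wts day 5 discs (log2 fold change 0.95 ± 0.10, edgeR adjusted p = 0.00163), a rise that held. In control discs cv-2 had 69.3, 69.2 and 65.4 CPM, overlapping day 9 and above every day 5 replicate. tkv, the type I receptor, had 846, 845 and 882 CPM in wts day 9 discs, against 703, 696 and 632 CPM in wts day 5 discs (log2 fold change 0.34 ± 0.08, edgeR adjusted p = 0.0285), a call that was lost in fits lacking any 1 of the 6 wts replicates (adjusted p between 0.0542 and 0.0965), and daw is among the largest rises. In control discs tkv had 650.0, 548 and 614 CPM, below every day 9 replicate and overlapping day 5. The ligand gene dpp was at 125, 111 and 109 CPM in wts day 9 discs, against 112, 109.6 and 105 CPM in wts day 5 discs and was not called (edgeR adjusted p = 0.479). In control discs dpp had 93.5, 96.4 and 104 CPM, below every wts replicate. For Hedgehog, kn and ihog, a co-receptor gene with log2 0.27, were the 2 of 21 called higher (9.52% against 5.44%), the ihog call was lost in fits lacking any day 9 replicate, day 5 replicate 2 or 3 or control replicate 1 or 2 (adjusted p between 0.0543 and 0.124), and hh and ptc had log2 fold changes of -0.02 and 0.11 (edgeR adjusted p = 0.862 and 0.451). For Wingless, fz2, a receptor gene, had 1143, 1137 and 1117 CPM in wts day 9 discs, against 951, 927 and 908 CPM in wts day 5 discs (log2 fold change 0.29 ± 0.06, edgeR adjusted p = 0.0177), a call that was lost in fits lacking day 9 replicate 2 or 3 or day 5 replicate 2 or 3 (adjusted p between 0.055 and 0.0661). In control discs fz2 had 761, 737 and 728 CPM, below every wts replicate. fz2 was the 1 of 28 called higher (3.57% against 5.44%) and vg the 1 called lower (3.57% against 2.90%), and wg had 86.5, 115 and 104 CPM in wts day 9 discs, against 89.6, 81.7 and 77.5 CPM in wts day 5 discs (edgeR adjusted p = 0.207). For EGFR, 3 of 21 rose (14.3% against 5.44%). Krn, a ligand gene, had 23.6, 22.3 and 25.8 CPM in wts day 9 discs, against 18.3, 14.1 and 16.8 CPM in wts day 5 discs (log2 fold change 0.54 ± 0.11, edgeR adjusted p = 0.0189). aop, the repressor Yan, had 296, 279 and 296 CPM in wts day 9 discs, against 247, 238 and 232 CPM in wts day 5 discs (log2 fold change 0.28 ± 0.06, edgeR adjusted p = 0.0204), and edl, which blocks the factor Pointed, rose by log2 0.38. The Krn call was lost in fits lacking day 9 replicate 3 or day 5 replicate 2 or 3 (adjusted p between 0.0575 and 0.0702). The aop call was lost in fits lacking day 9 replicate 1 or 3 or day 5 replicate 2 or 3 (adjusted p between 0.0501 and 0.0725). The edl call was lost in fits lacking any day 9 replicate or day 5 replicate 2 or 3 (adjusted p between 0.052 and 0.0892).

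For Notch, 3 of 29 were higher (10.3% against 5.44%) and 2 lower (6.9% against 2.90%). mam, the co-activator mastermind, had 222, 212 and 232 CPM in wts day 9 discs, against 167, 150.1 and 145 CPM in wts day 5 discs (log2 fold change 0.53 ± 0.07, edgeR adjusted p = 0.00391), which held. mib1, which activates the ligands by endocytosis, rose by log2 0.26, a call that was lost in fits lacking any 1 of the 6 wts replicates or control replicate 1 or 2 (adjusted p between 0.0529 and 0.136). E(spl)mgamma-HLH, a direct Notch target, had 1.39, 0.983 and 0.863 CPM in wts day 9 discs, against 3.42, 2.32 and 2.55 CPM in wts day 5 discs (log2 fold change -1.36 ± 0.28, edgeR adjusted p = 0.0215), a call that was lost in fits lacking day 9 replicate 2 or 3 or day 5 replicate 1 or 3 (adjusted p between 0.0608 and 0.0853). In control discs E(spl)mgamma-HLH had 6.65, 5.51 and 8.69 CPM, above every wts replicate. The receptor gene N and the ligand genes Dl and Ser were not called, with log2 fold changes of 0.13, -0.07 and -0.02. None of 22 proneural and sensory organ precursor genes was called by edgeR. The unadjusted p was under 0.05 for 3 of the 22, beside 26.8% of all genes. DESeq2 called none of them, limma-voom none, and the fit of only the 2 wts groups 1 higher. In the insulin and TOR list InR and ImpL2 were the 2 of 25 called higher (8.0% against 5.44%), and the ImpL2 call was lost in fits lacking day 9 replicate 2 or 3 or any day 5 replicate (adjusted p between 0.0508 and 0.105). Guidance genes outside the lists, chosen after their values were seen, also rose. NetA, a Netrin gene, had 38.9, 25.4 and 29.8 CPM in wts day 9 discs, against 6.42, 4.35 and 5.04 CPM in wts day 5 discs (log2 fold change 2.56 ± 0.44, edgeR adjusted p = 0.0105). In control discs NetA had 19.6, 5.15 and 20.0 CPM, below every day 9 replicate and overlapping day 5. Its neighbour NetB had 130.4, 145 and 137 CPM in wts day 9 discs, against 96.7, 95.2 and 86.9 CPM in wts day 5 discs (log2 fold change 0.56 ± 0.08, edgeR adjusted p = 0.00476). In control discs NetB had 65.2, 66.9 and 77.6 CPM, below every wts replicate. drl, a receptor for Wnt5, had 632, 673 and 701 CPM in wts day 9 discs, against 433, 422 and 395 CPM in wts day 5 discs (log2 fold change 0.68 ± 0.08, edgeR adjusted p = 0.00197). In control discs drl had 323, 279 and 288 CPM, below every wts replicate. NetB and drl held, and the NetA call was lost in fits lacking day 5 replicate 3 (adjusted p = 0.0642). comm2, of the commissureless family, had 8.69, 9.21 and 9.11 CPM in wts day 9 discs, against 13.5, 13.9 and 15.4 CPM in wts day 5 discs (log2 fold change -0.66 ± 0.10, edgeR adjusted p = 0.00707), a call that held. In control discs comm2 had 23.8, 20.5 and 20.7 CPM, above every wts replicate.

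Cell cycle genes that were called were all lower, by small amounts. Of 48 tested genes for G1, S phase and DNA replication, 3 were called lower (6.25% against 2.90%) and none higher, and 42 of 48 log2 fold changes were below 0. Of 58 mitosis genes 6 were called lower (10.3%) and none higher, with 49 below 0. The median log2 fold changes of the lists were -0.19 and -0.12, beside -0.015 over all genes, and over the 20 settings they were -0.21 to -0.13 and -0.14 to -0.10. asf1, a histone chaperone gene, had 80.7, 74.7 and 78 CPM in wts day 9 discs, against 96.3, 108 and 112 CPM in wts day 5 discs (log2 fold change -0.44 ± 0.08, edgeR adjusted p = 0.0122). In control discs asf1 had 104, 109 and 93.2 CPM, above every day 9 replicate and overlapping day 5. Mcm3, of the replicative helicase, had 128, 127 and 139 CPM in wts day 9 discs, against 170.4, 174 and 149.9 CPM in wts day 5 discs (log2 fold change -0.33 ± 0.07, edgeR adjusted p = 0.0294). Cdk1, the mitotic kinase gene, had 119.9, 114 and 113 CPM in wts day 9 discs, against 129.8, 152 and 148 CPM in wts day 5 discs (log2 fold change -0.31 ± 0.07, edgeR adjusted p = 0.0298). In control discs Cdk1 had 155, 144 and 161 CPM, above every day 9 replicate and overlapping day 5. sub, a kinesin gene of the spindle, had 67.7, 62 and 63.3 CPM in wts day 9 discs, against 79.1, 80.8 and 91.7 CPM in wts day 5 discs (log2 fold change -0.38 ± 0.08, edgeR adjusted p = 0.0185). In control discs sub had 66, 61.7 and 58.2 CPM, overlapping day 9 and below every day 5 replicate. dpa, Klp61F, asp, wac and Det were the others, at log2 -0.28, -0.23, -0.29, -0.37 and -0.32. Each call was of a change under 1.5-fold. CycB and PCNA had log2 fold changes of -0.06 and -0.20 and were not called (edgeR adjusted p = 0.553 and 0.134). The count called lower was 3 in the full fit, 1, 0 and 0 when wts day 9 replicates 1, 2 and 3 were left out in turn, and 1, 0 and 1 when wts day 5 replicates 1, 2 and 3 were left out in turn; it was 5 without control replicate 3 for the replication genes. It was 6 in the full fit, 2, 0 and 0 when wts day 9 replicates 1, 2 and 3 were left out in turn, and 6, 0 and 0 when wts day 5 replicates 1, 2 and 3 were left out in turn for the mitosis genes.

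Genes for making and breaking down proteins were compared as 5 lists. Ribosome biogenesis genes gave 5 called lower of 39 (12.8% against 2.90%), 38 negative log2 fold changes and a median of -0.19 (-0.23 to -0.11 over the settings). Cytoplasmic ribosomal protein genes gave 5 called lower of 88 (5.68% against 2.90%), 78 negative log2 fold changes and a median of -0.12 (-0.17 to -0.08 over the settings). Mitochondrial ribosomal protein genes gave 7 called lower of 72 (9.72% against 2.90%), 71 negative log2 fold changes and a median of -0.21 (-0.25 to -0.19 over the settings). Proteasome genes gave 3 called lower of 32 (9.38% against 2.90%), 32 negative log2 fold changes and a median of -0.17 (-0.23 to -0.11 over the settings). Aminoacyl-tRNA synthetase genes gave 1 called lower of 22 (4.55% against 2.90%), 20 negative log2 fold changes and a median of -0.11 (-0.18 to -0.08 over the settings). No member of these 5 lists was called higher. hoip, a snoRNP protein gene, had 107, 95.3 and 104 CPM in wts day 9 discs, against 122, 132 and 140.3 CPM in wts day 5 discs (log2 fold change -0.37 ± 0.08, edgeR adjusted p = 0.0204). In control discs hoip had 136, 156 and 144 CPM, above every day 9 replicate and overlapping day 5. RpS3A had 2385, 2405 and 2441 CPM in wts day 9 discs, against 2866, 3174 and 3479 CPM in wts day 5 discs (log2 fold change -0.40 ± 0.08, edgeR adjusted p = 0.0176). In control discs RpS3A had 2393, 2471 and 2297 CPM, overlapping day 9 and below every day 5 replicate. mRpL12 had 41.9, 40.3 and 41.8 CPM in wts day 9 discs, against 51.6, 55.1 and 52.6 CPM in wts day 5 discs (log2 fold change -0.36 ± 0.06, edgeR adjusted p = 0.0122). Prosalpha5, a subunit of the proteasome core, had 110.4, 96.3 and 105 CPM in wts day 9 discs, against 129, 147 and 135 CPM in wts day 5 discs (log2 fold change -0.40 ± 0.07, edgeR adjusted p = 0.0127). In control discs Prosalpha5 had 157, 146 and 159.5 CPM, above every day 9 replicate and overlapping day 5. Aats-tyr, for tyrosyl-tRNA synthetase, had a log2 fold change of -0.26. RpS3A was above the control on day 5 and near it on day 9. The numbers called lower were 0 in all 5 lists without replicate 2 or 3 of wts day 9 or of wts day 5. Without wts day 9 replicate 1 they were 1, 1, 3, 5 and 0 in the order above. Without wts day 5 replicate 1 they were 1, 3, 5, 2 and 0. Without control replicate 1 they were 1, 2, 6, 3 and 1. RanGAP, which drives nuclear transport, and His3.3A, a gene for the replacement histone H3.3, chosen after their values were seen, fell with calls that held. RanGAP had 173, 179 and 186 CPM in wts day 9 discs, against 229, 262 and 229 CPM in wts day 5 discs (log2 fold change -0.42 ± 0.07, edgeR adjusted p = 0.00871) and His3.3A had 157, 151 and 159 CPM in wts day 9 discs, against 204, 197 and 204 CPM in wts day 5 discs (log2 fold change -0.37 ± 0.06, edgeR adjusted p = 0.00804). In control discs RanGAP had 233, 238 and 244 CPM, above every day 9 replicate and overlapping day 5. In control discs His3.3A had 208, 229 and 204 CPM, above every wts replicate.

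Respiratory chain genes that were called were all lower. Of 44 tested genes of the respiratory chain and the tricarboxylic acid cycle, 10 were called lower (22.7% against 2.90%) and none higher, with 40 of 44 below 0 and a median of -0.20. COX5A, a subunit of cytochrome c oxidase, had 119, 101 and 109 CPM in wts day 9 discs, against 137, 143 and 139.6 CPM in wts day 5 discs (log2 fold change -0.35 ± 0.06, edgeR adjusted p = 0.0146). In control discs COX5A had 147, 151 and 146 CPM, above every wts replicate. sun, the epsilon subunit of ATP synthase, had 59.6, 56.5 and 58.6 CPM in wts day 9 discs, against 72.6, 79 and 81.4 CPM in wts day 5 discs (log2 fold change -0.42 ± 0.07, edgeR adjusted p = 0.00935). In control discs sun had 77.4, 88.1 and 82.3 CPM, above every day 9 replicate and overlapping day 5. Cyt-c-p, cytochrome c, had 68.3, 64.1 and 69.1 CPM in wts day 9 discs, against 80.9, 89 and 82.2 CPM in wts day 5 discs (log2 fold change -0.32 ± 0.06, edgeR adjusted p = 0.0185). In control discs Cyt-c-p had 84.4, 88.2 and 79.3 CPM, above every day 9 replicate and overlapping day 5. COX5B, levy, COX8, COX6B, ATPsynbeta, Cyt-c1 and kdn were the other 7, with log2 fold changes of -0.41, -0.29, -0.33, -0.27, -0.29, -0.25 and -0.34. Each of these 10 called genes had all 3 day 9 replicates below all 3 day 5 replicates. That order was found in 19 of the 44 tested genes of the list, beside 17.3% of all genes. The count called lower was 10 in the full fit, 12, 0 and 1 when wts day 9 replicates 1, 2 and 3 were left out in turn, and 6, 1 and 0 when wts day 5 replicates 1, 2 and 3 were left out in turn. Of 33 glycolysis genes 2 were called higher (6.06% against 5.44%) and 3 lower (9.09% against 2.90%). Gapdh2 had 504, 489 and 489 CPM in wts day 9 discs, against 626, 646 and 625 CPM in wts day 5 discs (log2 fold change -0.36 ± 0.08, edgeR adjusted p = 0.0217). In control discs Gapdh2 had 769.9, 732 and 637 CPM, above every day 9 replicate and overlapping day 5. fbp, fructose-bisphosphatase, had 48.9, 38.4 and 40.6 CPM in wts day 9 discs, against 56.9, 56.4 and 57.4 CPM in wts day 5 discs (log2 fold change -0.42 ± 0.09, edgeR adjusted p = 0.0204). In control discs fbp had 78.7, 80.5 and 76.9 CPM, above every wts replicate. Glut1, a glucose transporter, had 30.9, 27.6 and 28.5 CPM in wts day 9 discs, against 17.6, 17.2 and 12.2 CPM in wts day 5 discs (log2 fold change 0.89 ± 0.20, edgeR adjusted p = 0.0285). In control discs Glut1 had 32.6, 25.1 and 44.3 CPM, overlapping day 9 and above every day 5 replicate. Gpo-1, a glycerophosphate oxidase, had a log2 fold change of -0.69, and ImpL3 is given with the ecdysone genes. The Gapdh2 and Glut1 calls were lost in fits lacking any 1 of the 6 wts replicates (adjusted p between 0.0504 and 0.103). The fbp call was lost in fits lacking day 9 replicate 2 or 3 or any day 5 replicate (adjusted p between 0.0511 and 0.0853). The Gpo-1 and ImpL3 calls were lost in fits lacking day 9 replicate 2 or 3, any day 5 replicate or control replicate 1 (adjusted p between 0.0545 and 0.154).

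Of 39 oxidative stress genes 3 were called higher (7.69% against 5.44%) and 4 lower (10.3% against 2.90%). GstE8 had 1.92, 2.23 and 2.11 CPM in wts day 9 discs, against 4.71, 6.6 and 8.73 CPM in wts day 5 discs (log2 fold change -1.68 ± 0.24, edgeR adjusted p = 0.0059). In control discs GstE8 had 6.84, 8.04 and 6.08 CPM, above every day 9 replicate and overlapping day 5. Sod3, a secreted superoxide dismutase, had 214, 219 and 227 CPM in wts day 9 discs, against 164, 128 and 156 CPM in wts day 5 discs (log2 fold change 0.56 ± 0.10, edgeR adjusted p = 0.0105). In control discs Sod3 had 159, 147 and 175 CPM, below every day 9 replicate and overlapping day 5. Both calls held. Sod2, the mitochondrial superoxide dismutase, had 87.7, 78.2 and 83.3 CPM in wts day 9 discs, against 102, 105 and 107 CPM in wts day 5 discs (log2 fold change -0.33 ± 0.06, edgeR adjusted p = 0.0164). In control discs Sod2 had 111, 114 and 102 CPM, above every day 9 replicate and overlapping day 5. GstO3, GstT3, GstE6 and Jafrac1 were the others, at log2 0.49, 0.56, -1.56 and -0.47. The number called lower was 4 in the full fit, 4, 1 and 1 when wts day 9 replicates 1, 2 and 3 were left out in turn, and 3, 1 and 1 when wts day 5 replicates 1, 2 and 3 were left out in turn. Besides Cyp18a1, the cytochrome P450 genes Cyp6d4 and Cyp4e2 were called higher and Cyp49a1 lower, of 31 tested (9.68% against 5.44% and 3.23% against 2.90%). The number called higher was 3 in the full fit and 0 without any 1 of the 6 wts replicates. In the lipid list 3 of 18 rose (16.7% against 5.44%). whd, the carnitine palmitoyltransferase of fatty acid oxidation, had 63.7, 51.8 and 68.9 CPM in wts day 9 discs, against 37.9, 30.8 and 35.1 CPM in wts day 5 discs (log2 fold change 0.83 ± 0.13, edgeR adjusted p = 0.0072), which held. In control discs whd had 47.3, 48.4 and 59 CPM, overlapping day 9 and above every day 5 replicate. LpR2 and LpR1, the lipophorin receptor genes, had log2 fold changes of 0.39 and 0.37. The LpR2 call was lost in fits lacking any day 9 replicate or day 5 replicate 1 or 3 (adjusted p between 0.0601 and 0.0809). The LpR1 call was lost in fits lacking day 9 replicate 2 or 3 or any day 5 replicate (adjusted p between 0.0722 and 0.121). Ire1 and Ero1L, of the endoplasmic reticulum stress list, rose by log2 0.33 and 0.37, and Nmdmc had -0.40, of 31 tested (6.45% against 5.44% and 3.23% against 2.90%). The Ire1 call was lost in fits lacking day 9 replicate 2 or 3 or day 5 replicate 3 (adjusted p between 0.0543 and 0.0725). The Ero1L call was lost in fits lacking day 9 replicate 2 or 3 or any day 5 replicate (adjusted p between 0.0511 and 0.068). The Nmdmc call was lost in fits lacking any day 9 replicate, day 5 replicate 2 or 3 or control replicate 1 (adjusted p between 0.0526 and 0.129). Atg18a was the 1 of 27 autophagy genes called (3.7% against 5.44%), with log2 0.23, and it was lost in fits lacking any 1 of the 6 wts replicates or control replicate 1 (adjusted p between 0.0668 and 0.158). No heat shock gene of 19 was called by edgeR, though DESeq2 called 2 higher and 2 lower, limma-voom none, and the fit of only the 2 wts groups 10 higher and 1 lower. Of 19 log2 fold changes 17 were above 0. The spread was wide for Hsp70Bb, which had 196, 145 and 81.8 CPM in wts day 9 discs, against 38, 45.6 and 74.3 CPM in wts day 5 discs (edgeR adjusted p = 0.343). In control discs Hsp70Bb had 963, 346 and 23.8 CPM, overlapping both ages. The unadjusted p was under 0.05 for 5 of the 19, beside 26.8% of all genes. None of 10 iron and ferritin genes was called by edgeR, with 4 at an unadjusted p under 0.05, whereas DESeq2 called 1 higher, limma-voom none, and the fit of only the 2 wts groups none.

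Markers of blood cells were higher in wts day 9 discs. Of 21 tested haemocyte genes 9 were called higher (42.9% against 5.44%) and none lower, and 20 of 21 log2 fold changes were above 0. A further 10 listed genes were not tested, among them the crystal cell gene lz and the glial and blood gene gcm. Hml, hemolectin, had 42.2, 36 and 23.9 CPM in wts day 9 discs, against 12.1, 11.9 and 8.52 CPM in wts day 5 discs (log2 fold change 1.65 ± 0.37, edgeR adjusted p = 0.0264). In control discs Hml had 7.31, 18 and 23.1 CPM, below every day 9 replicate and overlapping day 5. The phagocytosis receptor gene eater had 7.73, 6.52 and 6.04 CPM in wts day 9 discs, against 1.19, 0.773 and 0.52 CPM in wts day 5 discs (log2 fold change 3.02 ± 0.62, edgeR adjusted p = 0.0204). In control discs eater had 0.562, 2.4 and 4.64 CPM, below every day 9 replicate and overlapping day 5. NimC1, of the same Nimrod family, had 5.17, 3.93 and 3.93 CPM in wts day 9 discs, against 0.777, 0.702 and 0.416 CPM in wts day 5 discs (log2 fold change 2.78 ± 0.64, edgeR adjusted p = 0.0301). In control discs NimC1 had 0.468, 2.0 and 4.21 CPM, overlapping both ages. srp, the GATA factor of blood cells, had 3.57, 3.21 and 3.02 CPM in wts day 9 discs, against 0.881, 0.843 and 0.623 CPM in wts day 5 discs (log2 fold change 2.06 ± 0.51, edgeR adjusted p = 0.0383). In control discs srp had 0.656, 1.24 and 3.25 CPM, overlapping both ages. Pxn, described with the matrix genes, shows the same order. Each was higher in all day 9 replicates than in any day 5 replicate, and the control replicates ranged from the day 5 level in replicate 1 to near the day 9 level in replicate 3. NimB1, NimB4, Sr-CI and ush were the other 4 called. The number called higher was 9 in the full fit, 1, 1 and 2 when wts day 9 replicates 1, 2 and 3 were left out in turn, and 3, 1 and 0 when wts day 5 replicates 1, 2 and 3 were left out in turn. The summed level of the list was 1011, 753 and 729 CPM in wts day 9 replicates 1 to 3, against 672, 619 and 579 CPM in wts day 5 replicates and 698, 774 and 754 CPM in control replicates. drpr, which encodes the engulfment receptor Draper and was chosen after its values were seen, had 173, 189.6 and 182 CPM in wts day 9 discs, against 147, 137 and 132 CPM in wts day 5 discs (log2 fold change 0.39 ± 0.06, edgeR adjusted p = 0.0072), and its call held. In control discs drpr had 127, 124 and 133 CPM, below every day 9 replicate and overlapping day 5.

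Genes of contractile muscle were lower in wts day 9 discs. Of 20 tested, 6 were called lower (30.0% against 2.90%) and none higher, with a median log2 fold change of -1.63. Mhc, the muscle myosin heavy chain, had 4.05, 0.725 and 0.671 CPM in wts day 9 discs, against 23.9, 43.6 and 15.1 CPM in wts day 5 discs (log2 fold change -3.93 ± 0.63, edgeR adjusted p = 0.00841). In control discs Mhc had 69.6, 78.8 and 41.4 CPM, above every day 9 replicate and overlapping day 5. bt, the titin-like gene bent, had 2.83, 1.55 and 1.29 CPM in wts day 9 discs, against 10.2, 21.7 and 5.98 CPM in wts day 5 discs (log2 fold change -2.73 ± 0.47, edgeR adjusted p = 0.0105). In control discs bt had 19.5, 23.2 and 15.9 CPM, above every day 9 replicate and overlapping day 5. up, a troponin T, had 1.23, 0.155 and 0.479 CPM in wts day 9 discs, against 5.85, 10.1 and 5.72 CPM in wts day 5 discs (log2 fold change -3.53 ± 0.80, edgeR adjusted p = 0.0275). In control discs up had 22.2, 81 and 16.6 CPM, above every wts replicate. Mlc1 had 0.16, 0.104 and 0.0479 CPM in wts day 9 discs, against 4.04, 7.58 and 3.38 CPM in wts day 5 discs, with 6 counts over the day 9 replicates, and Prm and Tm2 were the other calls, at log2 -3.15 and -3.56. In control discs Mlc1 had 12.8, 74.4 and 11.5 CPM, above every wts replicate. In all 6 genes wts day 5 replicate 2 was the highest of the wts replicates and control replicate 2 the highest of the control replicates. wts day 5 replicate 2 was also the library with larval cuticle RNA. The Mhc call held, and the number called lower was 6 in the full fit, 4, 1 and 1 when wts day 9 replicates 1, 2 and 3 were left out in turn, and 3, 2 and 2 when wts day 5 replicates 1, 2 and 3 were left out in turn; it was 11 without control replicate 2. The summed level of the list, in which ubiquitously expressed members weigh most, was 1277, 1210.0 and 1217 CPM in wts day 9 replicates 1 to 3, against 1357, 1470.0 and 1273 CPM in wts day 5 replicates and 1510.0, 2465 and 1505 CPM in control replicates.

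The myoblasts that lie on the notum and later form flight muscle gave the opposite sign. Of 17 tested genes 5 were called higher (29.4% against 5.44%) and none lower, and 14 of 17 were above 0. Ama, amalgam, had 162, 155 and 191 CPM in wts day 9 discs, against 101, 110.3 and 77.1 CPM in wts day 5 discs (log2 fold change 0.82 ± 0.13, edgeR adjusted p = 0.00707). In control discs Ama had 199.9, 184 and 201 CPM, overlapping day 9 and above every day 5 replicate. sns, a fusion receptor gene, had 36.8, 43 and 36.7 CPM in wts day 9 discs, against 27.4, 25.8 and 19.9 CPM in wts day 5 discs (log2 fold change 0.67 ± 0.12, edgeR adjusted p = 0.0132). In control discs sns had 35.4, 35.5 and 32.8 CPM, between the 2 ages. Both calls held. Mef2, the muscle factor, had 114, 108 and 107 CPM in wts day 9 discs, against 91.2, 87.7 and 84 CPM in wts day 5 discs (log2 fold change 0.32 ± 0.06, edgeR adjusted p = 0.0179), and mbc and zfh1 also rose, by log2 0.30 and 0.50. The myoblast factor twi had 24.7, 21.4 and 24.9 CPM in wts day 9 discs, against 21.6, 17.6 and 21.3 CPM in wts day 5 discs and was not called (edgeR adjusted p = 0.215). In control discs twi had 22.2, 26.4 and 24 CPM, overlapping day 9 and above every day 5 replicate. The number called higher was 5 in the full fit, 2, 3 and 2 when wts day 9 replicates 1, 2 and 3 were left out in turn, and 4, 3 and 2 when wts day 5 replicates 1, 2 and 3 were left out in turn, and the summed level was 971, 983 and 991 CPM in wts day 9 replicates 1 to 3, against 839.7, 828 and 748 CPM in wts day 5 replicates and 1157, 1280.0 and 1145 CPM in control replicates. In the peripodial list, of the thin cell layer that covers the disc, 3 of 16 were called higher (18.8% against 5.44%). These 3, scaf, Timp and hid, are also in the JNK list. The summed CPM was 3071, 3056 and 2969 in wts day 9 replicates 1 to 3 and 2425, 2443 and 2351 in wts day 5. In control replicates it was 2290, 2286 and 2393. drm and odd, which mark peripodial cells, had log2 fold changes of 0.11 and -0.13 (edgeR adjusted p = 0.562 and 0.785).

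For trachea, 2 of 25 tested genes rose (8.0% against 5.44%), bs and dys, and 24 of 25 log2 fold changes were above 0, with a median of 0.19. btl, the tracheal FGF receptor, had 10.5, 8.44 and 10.1 CPM in wts day 9 discs, against 6.53, 8.64 and 7.43 CPM in wts day 5 discs (edgeR adjusted p = 0.122). In control discs btl had 13.7, 14 and 14.2 CPM, above every wts replicate. The number called higher was 2 in the full fit, 0, 0 and 0 when wts day 9 replicates 1, 2 and 3 were left out in turn, and 1, 0 and 0 when wts day 5 replicates 1, 2 and 3 were left out in turn; it was 1 without control replicate 1. None of 14 tested fat body genes was called by edgeR, with 7 of 14 at an unadjusted p under 0.05, beside 26.8% of all genes, and DESeq2 called 5 higher, limma-voom none, and the fit of only the 2 wts groups 2 higher. The summed level was 34.9, 339 and 51.9 CPM in wts day 9 replicates 1 to 3, against 13.7, 67.3 and 39.2 CPM in wts day 5 replicates and 35.5, 183 and 251 CPM in control replicates. None of 15 neuron and glia genes was called by edgeR, with 3 of 15 at an unadjusted p under 0.05, and DESeq2 called 1 higher and 1 lower, limma-voom none, and the fit of only the 2 wts groups 1 higher and 1 lower. CrebA was the 1 of 4 tested salivary gland genes called (25.0% against 5.44%), and 19 other listed genes, mostly for glue proteins, were not tested. CrebA had 152, 122 and 142 CPM in wts day 9 discs, against 82, 83.9 and 70.7 CPM in wts day 5 discs (log2 fold change 0.81 ± 0.21, edgeR adjusted p = 0.0408). Its call was lost in fits lacking any 1 of the 6 wts replicates or control replicate 1 (adjusted p between 0.0575 and 0.143). In control discs CrebA had 131, 78.7 and 156 CPM, overlapping both ages. The summed salivary gland level was 154, 127 and 147 CPM in wts day 9 replicates 1 to 3, against 87.7, 88.6 and 75.1 CPM in wts day 5 replicates and 141, 239.5 and 3967 CPM in control replicates, so control replicate 3 held far more of it than any wts replicate. Only 5 of 27 listed gut genes were tested, and 3 of the 5 log2 fold changes were below 0. LM408, an alpha-mannosidase, was the 1 gut gene called (20.0% against 5.44%). It had 33.5, 29.6 and 33.6 CPM in wts day 9 discs, against 10.2, 12.9 and 9.25 CPM in wts day 5 discs (log2 fold change 1.59 ± 0.28, edgeR adjusted p = 0.0114). The LM408 call was lost in fits lacking day 5 replicate 3 (adjusted p = 0.0681). In control discs LM408 had 43.1, 24.5 and 60.5 CPM, overlapping day 9 and above every day 5 replicate. Of 19 germline genes 1, vret, was called (5.26% against 2.90%), with 20.9, 22 and 23.2 CPM in wts day 9 discs, against 28.4, 30.6 and 30.7 CPM in wts day 5 discs (log2 fold change -0.44 ± 0.08, edgeR adjusted p = 0.0137), which was lost in fits lacking day 5 replicate 2 or 3 (adjusted p between 0.0506 and 0.0596). Of 12 dosage compensation and sex genes Sxl was called (8.33% against 5.44%), with 502, 482 and 469 CPM in wts day 9 discs, against 400.0, 343 and 422 CPM in wts day 5 discs (log2 fold change 0.32 ± 0.08, edgeR adjusted p = 0.0409), which was lost in fits lacking any 1 of the 6 wts replicates or control replicate 1 (adjusted p between 0.0544 and 0.0971). In control discs Sxl had 377, 384 and 358 CPM, below every day 9 replicate and overlapping day 5. The male-specific RNA gene roX1 had 668, 611 and 447 CPM in wts day 9 discs, against 550.0, 672 and 686 CPM in wts day 5 discs and roX2 had 20.8, 35.7 and 25.1 CPM in wts day 9 discs, against 43.4, 40.3 and 56.3 CPM in wts day 5 discs (edgeR adjusted p = 0.781 and 0.0982). In control discs roX1 had 225, 407 and 584 CPM, overlapping both ages. In control discs roX2 had 12.9, 24.5 and 25.8 CPM, overlapping day 9 and below every day 5 replicate.

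**Figure D5:**
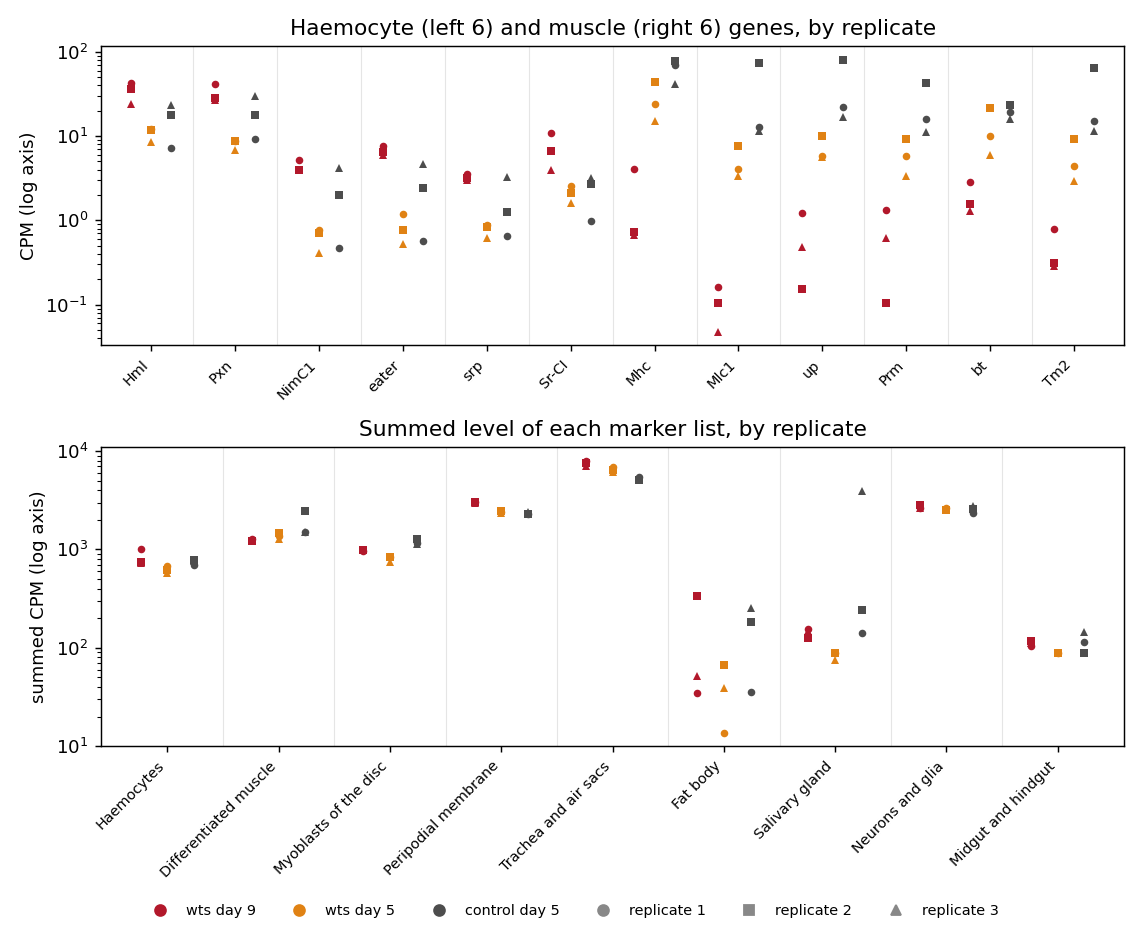
Levels in CPM on a log axis of haemocyte genes and muscle genes (top), and summed CPM of each marker list (bottom), 1 point per replicate, with wts day 9 left, wts day 5 in the middle and control day 5 right. The haemocyte genes lie higher and the muscle genes lower in wts day 9 discs than in wts day 5 discs, and the fat body sum is highest in wts day 9 replicate 2 among the wts replicates.

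Of the channel genes, 3 calls held. ppk29, a pickpocket sodium channel subunit, had 7.84, 6.06 and 6.04 CPM in wts day 9 discs, against 14.2, 14.8 and 15.7 CPM in wts day 5 discs (log2 fold change -1.17 ± 0.14, edgeR adjusted p = 0.00234). In control discs ppk29 had 7.73, 6.93 and 7.36 CPM, overlapping day 9 and below every day 5 replicate. ppk13 had 31.2, 39.7 and 33.7 CPM in wts day 9 discs, against 55.4, 56.2 and 53.1 CPM in wts day 5 discs (log2 fold change -0.65 ± 0.10, edgeR adjusted p = 0.00646). In control discs ppk13 had 0.0937, 0.0889 and 0.0533 CPM, below every wts replicate. ppk, the founding member, had 9.87, 13.3 and 12.8 CPM in wts day 9 discs, against 5.65, 5.48 and 5.35 CPM in wts day 5 discs (log2 fold change 1.13 ± 0.16, edgeR adjusted p = 0.00618). In control discs ppk had 1.78, 1.51 and 1.92 CPM, below every wts replicate. ppk13 was nearly undetected in control discs, and it was lower on day 9 than on day 5. In the list of 17 tested gap junction and channel genes 3 were higher (17.6% against 5.44%) and 2 lower (11.8% against 2.90%). ogre and Inx3, innexins of gap junctions, rose by log2 0.42 and 0.24. The ogre call was lost in fits lacking any day 9 replicate or day 5 replicate 2 or 3 (adjusted p between 0.0676 and 0.119). The Inx3 call was lost in fits lacking any 1 of the 6 wts replicates or control replicate 1 or 2 (adjusted p between 0.0537 and 0.137). Tsp42Ei and Tsp96F were the 2 of 20 tetraspanin genes called higher, at log2 2.01 and 0.26. The Tsp42Ei call was lost in fits lacking any day 9 replicate, day 5 replicate 2 or 3 or control replicate 1 (adjusted p between 0.0512 and 0.136). The Tsp96F call was lost in fits lacking any 1 of the 6 wts replicates or control replicate 1 or 3 (adjusted p between 0.0513 and 0.153). Of 8497 tested genes in RefSeq order, 21 adjacent pairs were both called higher and 10 both lower. Whether that exceeds chance was not tested. ppk13 stood beside CG33509, which had 13.2, 17.3 and 15 CPM in wts day 9 discs, against 23.5, 28.9 and 25 CPM in wts day 5 discs (log2 fold change -0.77 ± 0.20, edgeR adjusted p = 0.0438). In control discs CG33509 had 0.0468, 0.267 and 0.0533 CPM, below every wts replicate. The CG33509 call was lost in fits lacking any 1 of the 6 wts replicates (adjusted p between 0.0865 and 0.159). Cpr100A, CG15545 and CG15546 followed each other, and CG15546 had 51.9, 57.1 and 55.4 CPM in wts day 9 discs, against 13.6, 7.87 and 10.4 CPM in wts day 5 discs (log2 fold change 2.36 ± 0.28, edgeR adjusted p = 0.00238). In control discs CG15546 had 3.61, 1.87 and 5.07 CPM, below every wts replicate. CG9312 stood beside Cht5 and had 9.76, 5.9 and 8.2 CPM in wts day 9 discs, against 1.24, 1.05 and 0.727 CPM in wts day 5 discs (log2 fold change 2.97 ± 0.49, edgeR adjusted p = 0.00935). In control discs CG9312 had 4.68, 1.64 and 6.98 CPM, overlapping day 9 and above every day 5 replicate. The CG15546 call held. The CG9312 call was lost in fits lacking day 5 replicate 3 (adjusted p = 0.0592). Reads of overlapping or adjacent genes could be shared between them in the counting, whose use of strand is not given in the sources used here.

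Other genes whose calls held in all 9 fits, chosen after their values were seen, span several roles. path, an amino acid transporter that sustains growth, had 312, 311 and 375 CPM in wts day 9 discs, against 128, 149 and 106 CPM in wts day 5 discs (log2 fold change 1.38 ± 0.13, edgeR adjusted p = 0.00104). In control discs path had 145, 138 and 165 CPM, below every day 9 replicate and overlapping day 5. GLaz, a lipocalin, had 4.0, 5.75 and 5.32 CPM in wts day 9 discs, against 1.09, 1.05 and 1.3 CPM in wts day 5 discs (log2 fold change 2.12 ± 0.32, edgeR adjusted p = 0.00707). In control discs GLaz had 3.14, 2.4 and 5.28 CPM, overlapping day 9 and above every day 5 replicate. kon, a transmembrane proteoglycan gene, had 91.2, 85.5 and 82.9 CPM in wts day 9 discs, against 39.4, 43.2 and 32.6 CPM in wts day 5 discs (log2 fold change 1.17 ± 0.12, edgeR adjusted p = 0.00163). In control discs kon had 72.1, 62.1 and 83.8 CPM, overlapping day 9 and above every day 5 replicate. Inos, of inositol synthesis, had 158, 156 and 157 CPM in wts day 9 discs, against 96.8, 102 and 70.1 CPM in wts day 5 discs (log2 fold change 0.81 ± 0.12, edgeR adjusted p = 0.00639). In control discs Inos had 89.6, 93.9 and 99.8 CPM, below every day 9 replicate and overlapping day 5. path, kon, GLaz and Inos were each higher in all day 9 replicates than in any day 5 replicate. Nlg1, a neuroligin, had 5.97, 6.0 and 7.0 CPM in wts day 9 discs, against 1.87, 2.04 and 1.71 CPM in wts day 5 discs (log2 fold change 1.76 ± 0.25, edgeR adjusted p = 0.00544). In control discs Nlg1 had 4.59, 2.58 and 4.43 CPM, between the 2 ages. kek2, a leucine-rich repeat receptor gene, had 3.47, 3.26 and 2.59 CPM in wts day 9 discs, against 0.777, 0.562 and 0.883 CPM in wts day 5 discs (log2 fold change 2.05 ± 0.30, edgeR adjusted p = 0.00639). In control discs kek2 had 1.5, 1.11 and 1.76 CPM, between the 2 ages. Dtg, a Dpp target gene, had 94.1, 78.2 and 82.4 CPM in wts day 9 discs, against 51.6, 56.3 and 44.5 CPM in wts day 5 discs (log2 fold change 0.74 ± 0.11, edgeR adjusted p = 0.00708). In control discs Dtg had 105, 88.5 and 112 CPM, overlapping day 9 and above every day 5 replicate. For Dtg the day 5 level was below both the day 9 and the control level. Among falls, CG31262 had 1.44, 1.4 and 2.11 CPM in wts day 9 discs, against 6.17, 11.7 and 7.01 CPM in wts day 5 discs (log2 fold change -2.32 ± 0.31, edgeR adjusted p = 0.0043), below the control on day 9 and above it on day 5. In control discs CG31262 had 2.67, 4.22 and 3.63 CPM, between the 2 ages.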

How the data were processed

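RNA of hand-dissected wing discs was sequenced as 18 libraries. The authors deposited 1 table of raw read counts per gene, made with HTSeq per the submitters' processing notes; how reads were aligned, to which build and with which use of strand is not given in the sources used here. It holds 17373 genes, of which 3540 had no count. Libraries held 5611674 to 11193858 counts, and the depth is the number of counts, so precision covers counting error and the spread between replicates. Libraries a and b of each number differed by about sampling noise (chi-square per degree of freedom 0.994 to 1.06, against 11.1 to 32.8 between replicates of the wts groups), so they were summed and counted as 1 replicate. The control columns are named for days 5 and 6, while their labels give day 5.

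Genes were filtered with filterByExpr, scaled with TMM and tested with edgeR 4.0.16 (quasi-likelihood F-test, all 3 groups in 1 fit, contrast wts day 9 minus wts day 5) in R 4.3.3, with Benjamini-Hochberg adjustment over the 8585 genes tested. The standard error of a log2 fold change is its size divided by the square root of F. CPM values use TMM-scaled library sizes. The test was checked on simulated data. Alternatives were DESeq2 1.42.0, limma-voom 3.58.1, other scalings and filters, a replicate block, only the 2 wts groups, the a or b libraries alone, and each replicate left out. The named genes are the 12 largest rises and falls with at least 10 CPM in a wts group and no overlap, and members of 57 gene lists, those with the smallest adjusted p first; any other gene is marked as picked once its values had been seen. The comparison, lists and named members were chosen with earlier results of these data known, and 13 list entries that were of another role were removed after the data were seen. No set test was made. Figures were drawn with matplotlib 3.10.9 in Python 3.11.15.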

Additional observations from a re-analysis of the deposited data

How the results depend on the processing

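The number of genes called depended on the processing, and the direction of the named genes that were called did not. Beside 467 genes called higher and 249 lower, DESeq2 called 800 and 423, and a fit of only the 2 wts groups called 711 higher and 320 lower. With the replicate block 387 genes were called higher and 141 lower; deviations from the group means of replicates with the same number correlated at -0.15, -0.13 and -0.02, so the samples share only a number, and no wts day 9 replicate correlated best with its own number. The other scalings, filters, limma-voom and the a or b libraries alone gave 400.0 to 497 higher and 202 to 244 lower. Leaving out single replicates gave 117 to 585 genes higher and 35 to 308 lower, with the lowest counts in the fit lacking wts day 5 replicate 3. Each fit lacking replicate 2 or 3 of wts day 9, or replicate 2 of wts day 5, called 170 to 204 genes higher and 42 to 48 lower. Why the counts moved was not tested; each such fit has fewer samples. None of the 191 named genes that were called changed sign in any of the 19 other settings that gave it a value, while 9 that were not called (Lcp1, Lcp4, Ser, Ubx, hh, roX1, stg, toy and tup) did in at least 1. Of the 191, 53 passed the threshold in all 20 settings. Over all genes 100 were called higher and 22 lower in all 20 settings. Of the calls, 186 of the genes called higher and 161 of those called lower were of log2 fold changes under 0.5 in size.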

Other observations

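Some genes differed widely between replicates of 1 group and were not called. In wts day 9 replicate 1, cac, a calcium channel gene, stood out, with 69.5, 21.2 and 18 CPM in wts day 9 discs, against 7.77, 20.7 and 13.1 CPM in wts day 5 discs (edgeR adjusted p = 0.147). In control discs cac had 1.87, 5.95 and 4.53 CPM, below every wts replicate. CG12164 was also far above the other day 9 replicates there, with 94.8, 9.68 and 15.4 CPM in wts day 9 discs, against 72.4, 75.8 and 112 CPM in wts day 5 discs (edgeR adjusted p = 0.314). In control discs CG12164 had 22.6, 14 and 16.6 CPM, overlapping day 9 and below every day 5 replicate. In wts day 5 replicate 1, the Pax6 gene toy was high, with 0.32, 0.207 and 0.288 CPM in wts day 9 discs, against 8.96, 0.281 and 0.156 CPM in wts day 5 discs (edgeR adjusted p = 0.12). In control discs toy had 0.984, 1.33 and 0.373 CPM, above every day 9 replicate and overlapping day 5. In wts day 5 replicate 2, which held larval cuticle RNA, CG7465 had 0.16, 0 and 0 CPM in wts day 9 discs, against 0, 199.5 and 0.208 CPM in wts day 5 discs (edgeR adjusted p = 0.12). In control discs CG7465 had 0, 5.11 and 96.8 CPM, overlapping both ages. In wts day 9 replicate 2, which held fat body RNA, the apolipophorin gene Rfabg had 1.87, 79.5 and 9.4 CPM in wts day 9 discs, against 1.61, 1.83 and 5.25 CPM in wts day 5 discs (edgeR adjusted p = 0.102), and the storage protein gene Lsp1beta had 5.81, 115 and 15.1 CPM in wts day 9 discs, against 2.75, 2.46 and 15.4 CPM in wts day 5 discs. In control discs Rfabg had 2.25, 12.2 and 7.52 CPM, overlapping both ages. In control discs Lsp1beta had 4.12, 51.4 and 23.3 CPM, overlapping both ages.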
